A study of Homo sapiens with 48 samples.

Results

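The 51 genes described here encode the proteins that license replication origins, fire them and copy DNA at the fork. They were taken by name and role from the machinery of DNA replication and not by their values, but with earlier results of these data known. They are 51 of the 58302 genes in the count table. All 51 passed the filter on low counts in all 4 clones, so that none was left out of a test. By role, 9 belong to origin licensing, 6 to the MCM helicase, 8 to origin firing, 10 to primase and the polymerases, 8 to the sliding clamp and its loaders, 3 to replication protein A, 2 to the lagging strand and 4 to fork protection, and CDC25A, a phosphatase that activates the cyclin-dependent kinases of S phase, is the last.

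RNA-seq was carried out on AMO1, a human plasmacytoma line, carrying either of 2 doxycycline (Dox)-inducible shRNA sets, shIRE1 against ERN1 (which encodes IRE1) or shXBP1 against XBP1. shIRE1 clones 1 and 3 and shXBP1 clones 1 and 18 were left untreated (0 h) or given 0.2 ug/ml Dox for 24, 48 or 72 h, with 3 flasks of each clone at each time, which makes 16 groups and 48 libraries. All libraries carry the integrated shRNA cassette, with 3 hairpins per target on a Dox promoter, and each clone grew from a single cell, so that the flasks of a group are replicates of 1 clone and 2 clones stand for each target. Libraries with a non-targeting hairpin were not analysed here, and the effect of Dox itself cannot be told apart from that of the hairpins within a clone. The shIRE1 clones were compared with the shXBP1 clones to ask which changes followed the loss of IRE1 itself rather than of XBP1, the transcription factor made when IRE1 splices its mRNA.

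Replication starts at origins bound by the origin recognition complex (ORC), on which CDC6 and CDT1 load the MCM helicase in G1. The kinases CDC7 and CDK2 then let MCM10, CDC45 and the GINS complex join the helicase, polymerase alpha with primase lays down primers, polymerases epsilon and delta extend the strands, and PCNA, loaded by RFC, holds the polymerases on DNA. Many of these genes are transcribed from late G1 under the E2F factors, so their mRNAs are abundant in dividing cells, such as a myeloma line, and low in resting plasma cells.

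Promoters of 5 members with a word of the E2F type just before the start site are shown, with that of ORC2. ORC2 holds no word and moved least among the licensing genes. They are examples of the 2 kinds and do not stand for all members. Each is the 100 bases before the start site, 5′ to 3′ on the strand of the gene, from RefSeq on GRCh38.p14, and capitals mark a match to TTTCCCGC, TTTCGCGC, TTTGCCGC or TTTGGCGC on either strand.
RFC3, chr13:33818049-33818148, plus strand: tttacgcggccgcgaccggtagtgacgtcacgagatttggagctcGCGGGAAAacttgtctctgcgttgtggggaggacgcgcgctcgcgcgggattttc
GINS2, chr16:85688955-85689054, minus strand: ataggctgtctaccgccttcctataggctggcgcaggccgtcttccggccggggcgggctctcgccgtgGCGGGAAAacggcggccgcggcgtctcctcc
GMNN, chr6:24775313-24775412, plus strand: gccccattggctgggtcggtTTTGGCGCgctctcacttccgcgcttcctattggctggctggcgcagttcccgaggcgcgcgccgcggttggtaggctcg
CDT1, chr16:88803689-88803788, plus strand: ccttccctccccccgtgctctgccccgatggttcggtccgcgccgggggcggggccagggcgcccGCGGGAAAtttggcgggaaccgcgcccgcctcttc
PCNA, chr20:5126623-5126722, minus strand: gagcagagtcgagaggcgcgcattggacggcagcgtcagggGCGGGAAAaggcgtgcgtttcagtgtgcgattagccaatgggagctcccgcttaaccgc
ORC2, chr2:200963661-200963760, minus strand: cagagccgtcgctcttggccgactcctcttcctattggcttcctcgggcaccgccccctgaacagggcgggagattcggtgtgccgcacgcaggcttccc
The 4 words share their first 3 letters, and both strands were searched from 250 bases before to 50 after each listed start. Of the 44 members with a promoter in the table, 22 (50%) held a word, against 685 of 10501 genes tested in the 48 libraries (6.52%) and 1090 of 27305 genes in the table (3.99%). CDC6 is counted among the 22 through a word at base 8 after its start. GMNN and PCNA each have another listed start, not shown, whose window holds no word. A match is a string of letters and not a measured binding site. Only these 4 exact words were searched, so a promoter without one may still hold an E2F site of another form. The 22 members with a word had a median log2 fold change of -1.46 at 24 h in shIRE1 clone 1 and -1.0 in clone 3, and the 22 without had -1.02 and -0.85, with ranges from -2.55 to -0.68 and from -2.29 to -0.06 in clone 1. The 2 kinds overlapped over most of their range, and at 48 and 72 h in clone 3 the order of the medians turned (-0.84 and -0.94 with a word, -0.89 and -1.02 without). MCM10, CDC45, WDHD1 and ORC1 held no word. Their mean changes over the shIRE1 clones at 24 h were -1.97, -1.81, -1.77 and -1.66. CDC7 and ORC3 held a word, and their means were -0.68 and -0.65.

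Before the results, the labels were checked against the libraries. Depth ranged from 19177855 to 40767202 counts per library. XBP1 read a mean of 167 CPM (counts scaled to a common TMM-normalised library size) at 0 h and 45.3, 35.9 and 34.0 CPM with Dox in shXBP1 clone 1, and 170.2, 62.6, 44.5 and 37.9 CPM in clone 18. ERN1 read 438, 145, 121 and 125 CPM in shIRE1 clone 3 and 152, 127, 96.4 and 102 CPM in shIRE1 clone 1, whose level at 0 h was already near that of the silenced clone 3. ERN1 fell in shIRE1 clone 1 at 24 h by only 0.27 on the log2 scale (edgeR adjusted p = 9.97e-06). XBP1 changed in the shIRE1 clones too, by 0.10, -0.45 and -0.38 on the log2 scale at 24, 48 and 72 h in clone 1. In clone 3 it changed by -0.14 (not called), -0.95 and -0.86. ERN1 changed by 0.76, 0.62 and 0.72 in shXBP1 clone 1 and by -0.04 (not called), -0.29 and -0.29 in clone 18. The comparison of shIRE1 with shXBP1 therefore does not set the loss of 1 target against a steady level of the other. Of 10 plasma-cell markers, 9, SDC1 among them, were present, the exception being CD27 (0.044 to 0.826 CPM). The B-cell genes PAX5 and CD22 and the T-cell genes CD3D and CD2 were near 0. MS4A1 and BCL6 of the B-cell list reached 2.29 and 1.18 CPM, and TRAC and CD3E of the T-cell list 5.97 and 17.3 CPM. The summed plasma-cell markers spanned 14233 to 15935 CPM at 0 h and 11044 to 11509 CPM at 24 h in shIRE1 clone 1, and 17338 to 19039.6 CPM and 11837 to 12568 CPM in clone 3. The same sums spanned 17609.6 to 20959 CPM and 14037 to 16087 CPM in shXBP1 clone 1, and 18369 to 18724 CPM and 17118 to 17475 CPM in clone 18. At 72 h they had gone to 9099 to 9639 CPM in shIRE1 clone 1 and 7491 to 9296 CPM in clone 3, against 13062 to 14099 CPM in shXBP1 clone 1 and 13115 to 15295 CPM in clone 18. Summed T-cell markers, mostly CD3E, spanned 5.85 to 7.18 CPM at 0 h and 15.9 to 16.8 CPM at 24 h in shIRE1 clone 1. In shIRE1 clone 3 they spanned 8.99 to 9.93 CPM and 14.9 to 16.4 CPM. Summed B-cell markers went from 0.556 to 0.956 CPM at 0 h to 2.18 to 2.71 CPM at 72 h in shIRE1 clone 1. In clone 3 they went from 0.746 to 0.925 CPM to 2.28 to 2.48 CPM. At 72 h they spanned 1.01 to 1.26 CPM in shXBP1 clone 1 and 0.921 to 1.51 CPM in clone 18. Summed stromal and epithelial markers, of which COL3A1 and EPCAM read at most 0.177 and 0.193 CPM, went from 1.13 to 1.42 CPM at 0 h to 3.90 to 4.28 CPM at 72 h in shIRE1 clone 1 and from 0.864 to 1.499 CPM to 5.47 to 6.48 CPM in clone 3. The B-cell, T-cell and stromal sums are far below those of the members, and the part of any of these sums in the results was not tested.

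At 13 genes, none of them a member, the clones shIRE1 1 and 3 were steadily apart at 0 and 24 h. At those genes all 3 libraries labelled shIRE1 clone 1 at 72 h lay with clone 3 and all 3 labelled clone 3 at 48 h lay with clone 1. TLR7, for example, read 1.66, 1.79, 2.72 and 23.7 CPM at 0, 24, 48 and 72 h in the libraries labelled clone 1 and 18.3, 14.3, 2.74 and 30.0 CPM in those labelled clone 3. Across all genes, in contrast, the libraries labelled 72 h differed from those labelled 48 h at 149 of 17154 genes in clone 1 and 161 of 17204 in clone 3 (edgeR quasi-likelihood, adjusted p under 0.05), whereas the clones differed at 7481 of 18445 at 0 h. Likewise shXBP1 clone 18 replicate 3 at 72 h lay with shXBP1 clone 1 at 583 of 592 such genes, 2 of which, ORC6 and POLA1, are members. Libraries were kept under their labels. None of these 7 is a 0 or 24 h library, but they share the spread and the filter of the fits, so counts at 24 h can move without them too. Leaving them out removes the whole 72 h group of shIRE1 clone 1 and the whole 48 h group of shIRE1 clone 3, so no value without them exists for the responses of these groups, for the difference between the shIRE1 clones at 48 or 72 h or for calls in both shIRE1 clones at those times. Replicate 1 of shIRE1 clone 3 at 24 h correlated across all genes tested more with shIRE1 clone 1 at 24 h (r = 0.998) than with its own group (r = 0.997), although at the genes that part the clones it lay with clone 3, and without it 45 members were still called in clone 3 at 24 h.

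**Figure D1:**
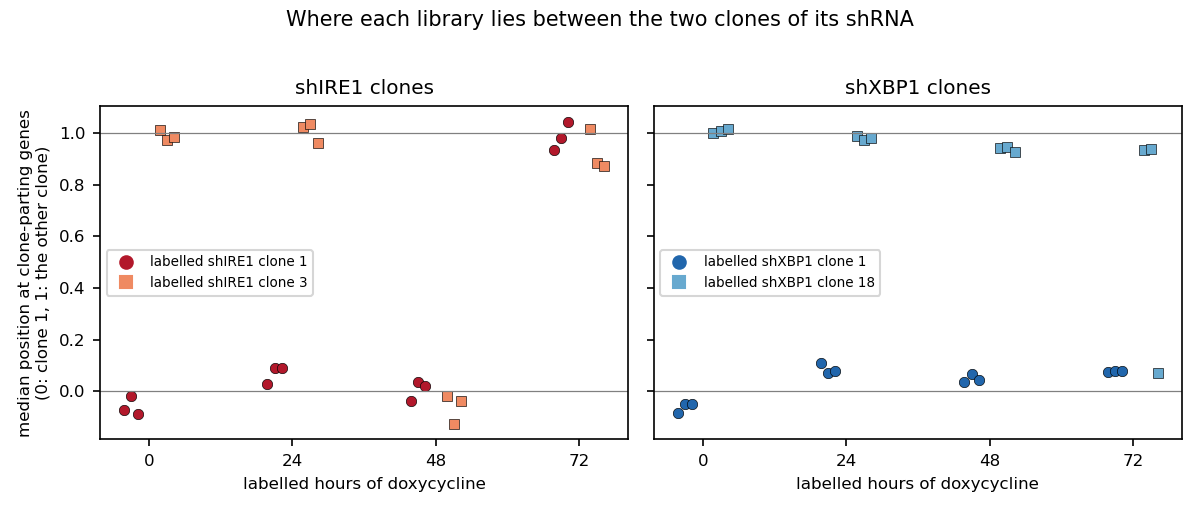
Median position of each library (points) on a scale from 0, the level of clone 1, to 1, the level of the other clone, over genes that part the clones at 0 and 24 h, against labelled hours of Dox, for shIRE1 (left) and shXBP1 (right). The 3 libraries labelled shIRE1 clone 1 at 72 h sit between 0.933 and 1.04, those labelled shIRE1 clone 3 at 48 h lie at the level of clone 1, and 1 library labelled shXBP1 clone 18 at 72 h lies with shXBP1 clone 1.

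With shIRE1 the replication genes fell nearly as a block, and with shXBP1 fewer fell and by less. At 24 h, 49 of the 51 were lower in shIRE1 clone 1 and 45 in clone 3, against 29% and 23.3% of all genes tested, and none was higher. Their median log2 fold changes were -1.30 and -1.05. Lower by at least 2-fold were 35 members in clone 1 and 26 in clone 3, against 4.58% and 3.59% of all genes tested. In 49 and 46 members all 3 libraries at 24 h lay below all 3 at 0 h, against 30.1% and 25.1% of genes, ORC2 and ORC5 being the 2 that overlapped in both clones, joined by CHTF18, POLD1 and POLD2 in clone 3. Calls are edgeR quasi-likelihood tests within a clone with Benjamini-Hochberg adjusted p under 0.05 over all genes tested, and in bulk RNA fewer cells in S phase and less mRNA per cell cannot be told apart.

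The fall held at the later times. At 48 h, 51 members were lower in shIRE1 clone 1 (31.5% of all genes) and 49 in clone 3 (31.6%), with medians of -0.98 and -0.92 on the log2 scale. At 72 h the counts were 51 (31.1%) and 50 (30.5%), with medians of -1.0 in both clones. Past 2-fold lay 25 and 24 members at 48 h (5.47% and 7.89% of all genes) and 25 and 25 at 72 h (5.47% and 7.77%). Lower in both shIRE1 clones were 45 members at 24 h, 49 at 48 h and 50 at 72 h, against 15.8%, 21.9% and 21.4% of the genes tested in both. When the 6 shIRE1 libraries that lay with the other clone were left out, clone 1 kept counts of 49 at 24 h and 51 at 48 h, and clone 3 had 45 at 24 h and 47 at 72 h. Summed over the members, the level in shIRE1 clone 1 was 7657 ± 79.6 at 0 h, 3162 ± 31.8 at 24 h, 3849 ± 70.4 at 48 h, 3870.1 ± 5.35 at 72 h (CPM, mean ± SD, n = 3). The sum in shIRE1 clone 3 was 6079 ± 74.3 at 0 h, 3215 ± 61.2 at 24 h, 3267 ± 28.4 at 48 h, 3110.1 ± 76.8 at 72 h. In shXBP1 clone 1 it was 8243 ± 171 at 0 h, 6891 ± 56.6 at 24 h, 6842 ± 134 at 48 h, 6599 ± 26.8 at 72 h, and in clone 18 6087 ± 50.2 at 0 h, 5718 ± 65.6 at 24 h, 6192 ± 53.9 at 48 h, 6267 ± 346 at 72 h. The sums of the shIRE1 clones started apart and lay close at 24 h, and those of shXBP1 clone 18 stayed near their start.

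In shXBP1 clone 1, 24 members were lower at 24 h (12.8% of all genes), 26 at 48 h (15.5%) and 29 at 72 h (16.8%), with medians of -0.19, -0.19 and -0.25. A single member, ORC2, was higher there, at 48 h, by 0.25 (standard error 0.087, edgeR adjusted p = 0.0468), where 16.6% of all genes were higher. In shXBP1 clone 18, 3 members were lower at 24 h (1.3% of all genes), namely CDC6, FEN1 and POLE3, and only CDC6 at 48 h (3.5%). At 72 h CDC6 was again lower (5.55%) and 5 were higher (4.41%), ORC2, CDC7, RPA1, PRIM1 and POLD3, but without replicate 3, the library that lay with clone 1, 2 were lower and none higher. CDC6 was therefore the member called lower in both shXBP1 clones at every time, 3 members being so at 24 h and 1 each at 48 and 72 h, against 0.741%, 1.41% and 2.19% of the genes tested in both. The calls in clone 18 moved with single libraries. At 24 h, 1 member was called without replicate 1 or 3 at 0 h or replicate 2 or 3 at 24 h, and 6 without replicate 3 at 72 h. At 48 h, none was called without replicate 1 or 2 at 0 h or replicate 2 at 48 h, and 3 without replicate 3 at 72 h. At 72 h, none was called without any of the 0 h replicates or replicate 1 or 2 at 48 h, 1 without replicate 2 at 24 or 72 h, 2 without replicate 3 at 72 h, and 12 without replicate 1 at 72 h.

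**Figure D2:**
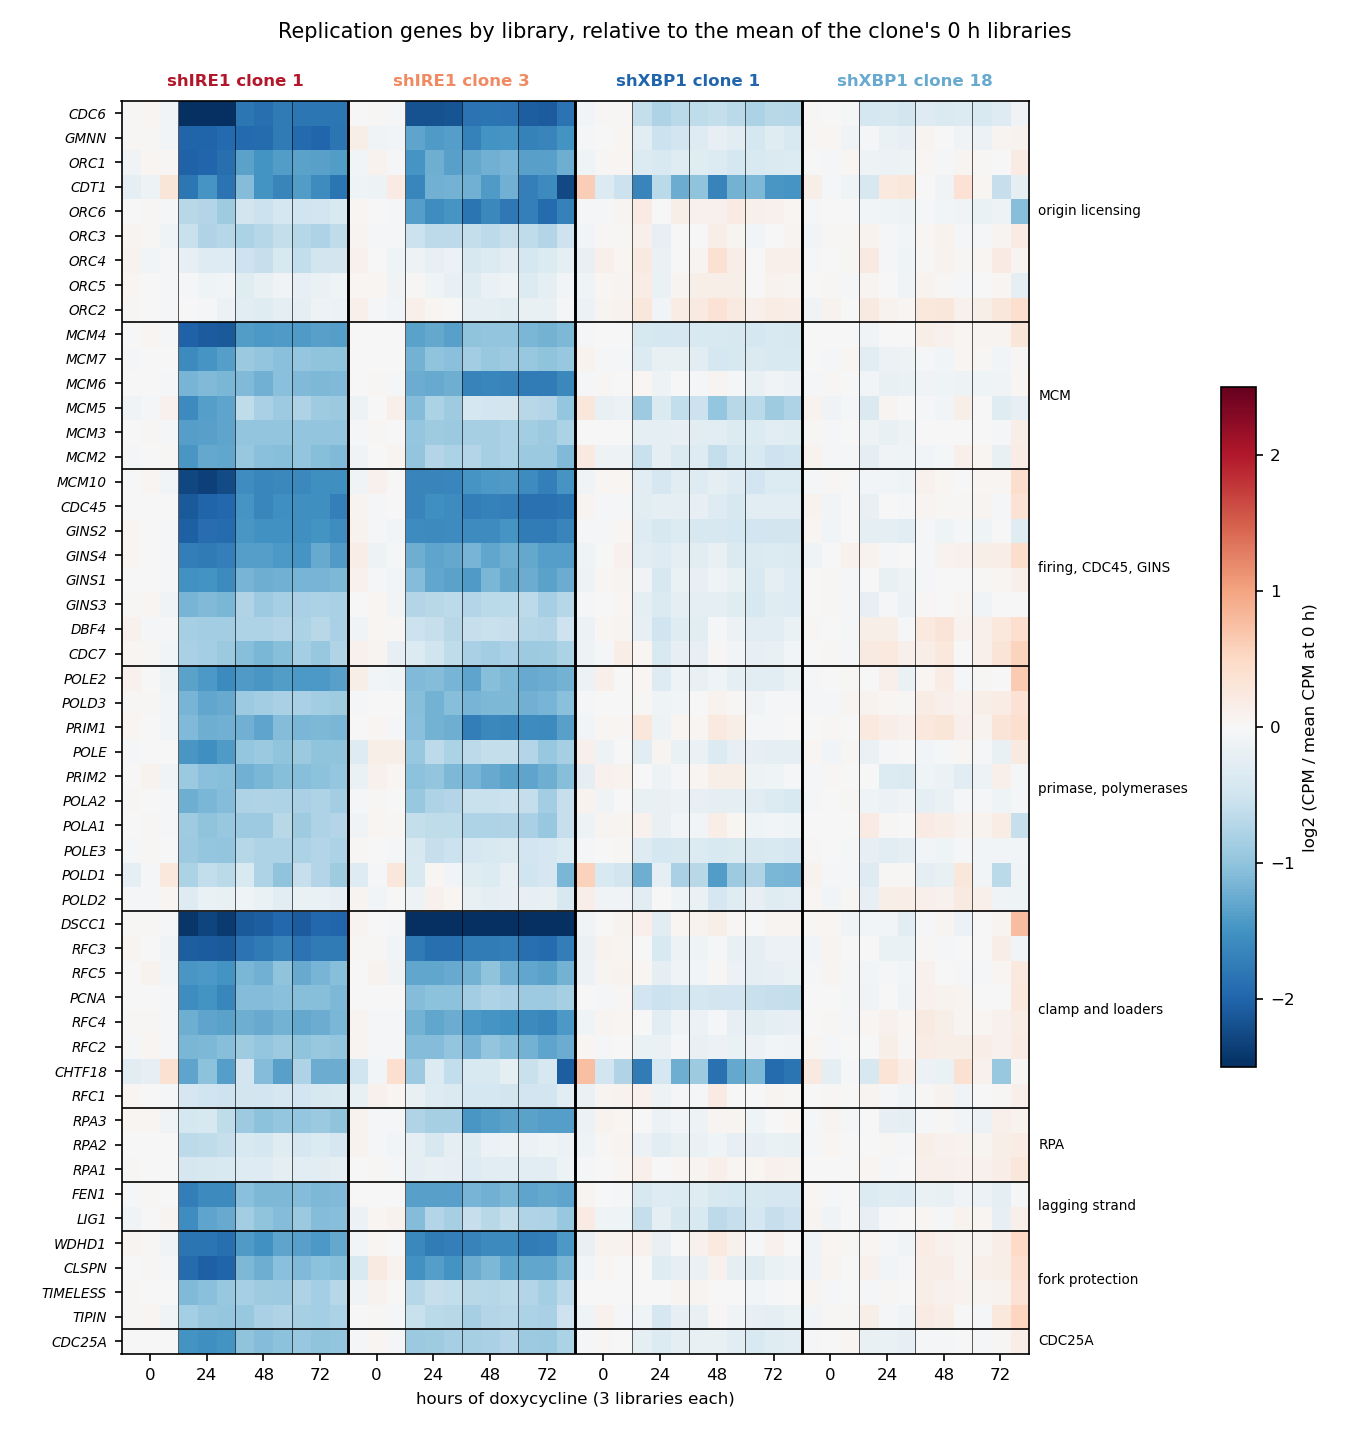
Log2 ratio of the CPM of each of the 51 genes (rows, by role) in each of the 48 libraries (columns, by clone and hours of Dox) to the mean CPM of the clone's own 0 h libraries, with the colour scale clipped at -2.5 and 2.5. The Dox columns of both shIRE1 clones are blue in nearly every row, most deeply for CDC6 and DSCC1, while the shXBP1 clone 18 columns stay pale apart from replicate 3 at 72 h, the last column.

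**Figure D3:**
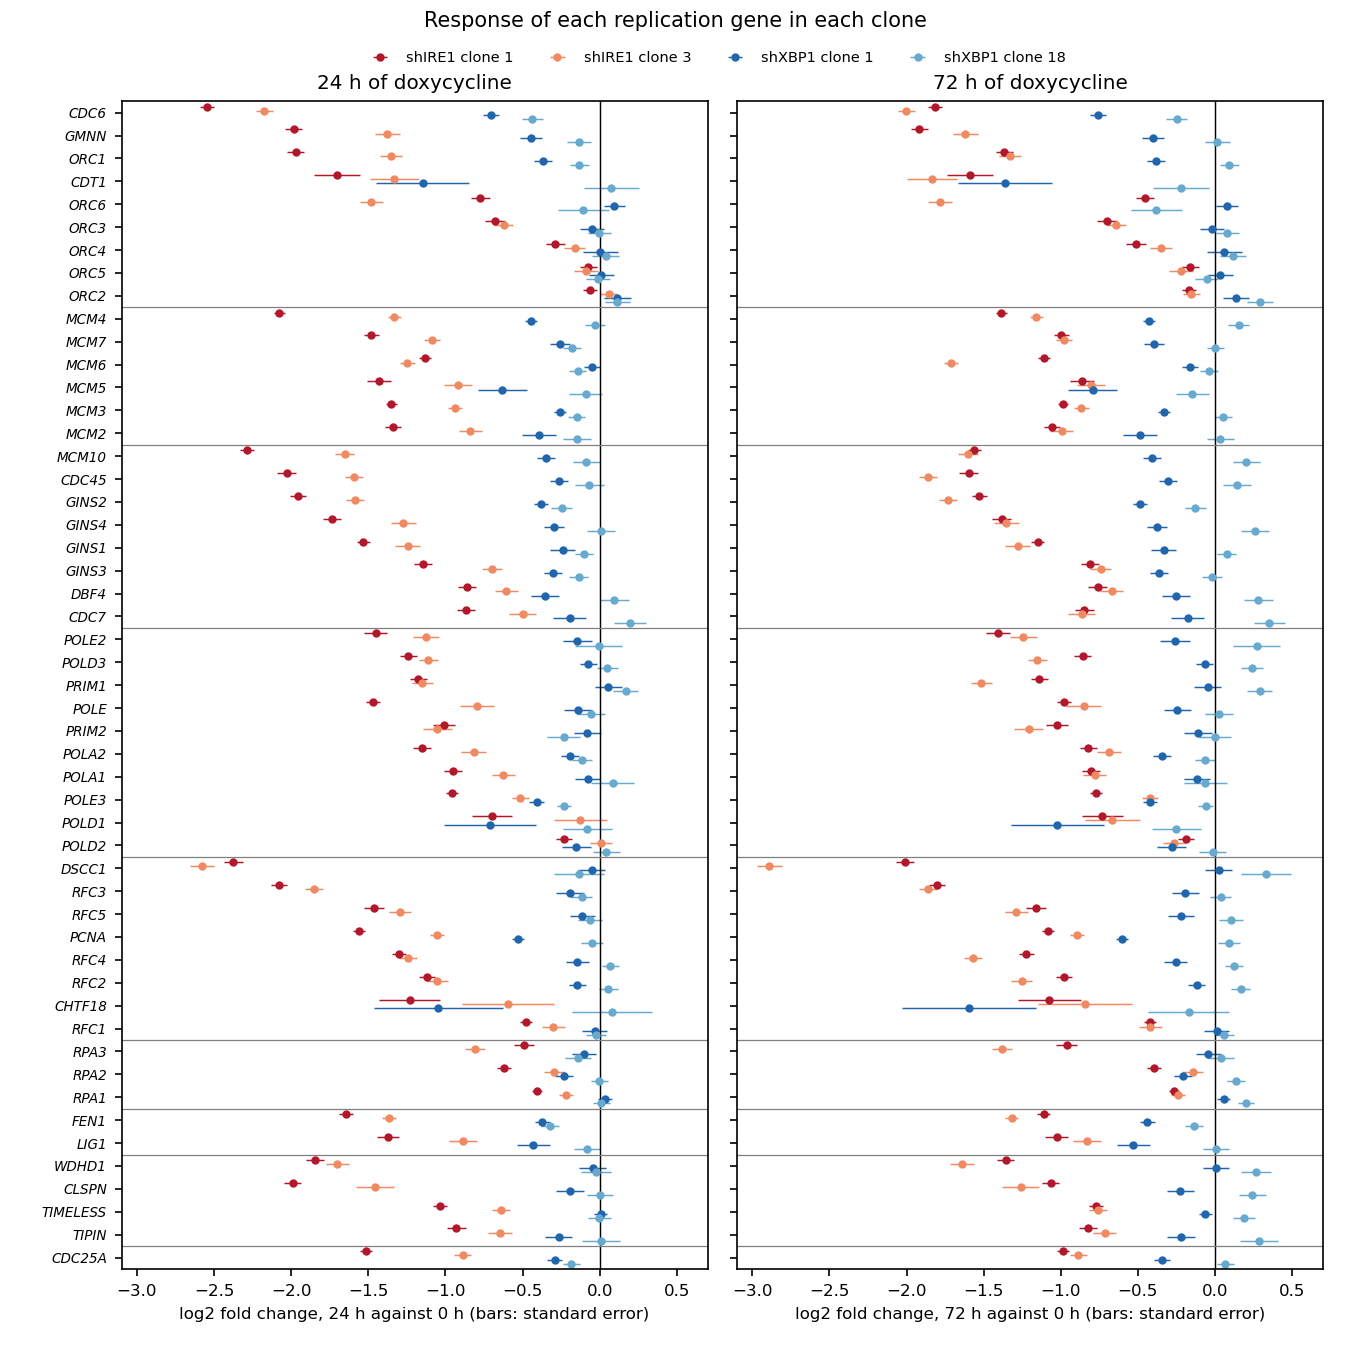
Log2 fold change of each gene at 24 h (left) and 72 h (right) of Dox against 0 h in each of the 4 clones (points), with the standard error derived from the edgeR test as bars, n = 3 libraries per group. At 24 h the shIRE1 points reach from CDC6 at -2.55 in clone 1 and DSCC1 at -2.58 in clone 3 to ORC2 near 0, at 72 h DSCC1 in clone 3 reaches -2.89, and the shXBP1 clone 18 points at 24 h lie between CDC6 at -0.44 and CDC7 at 0.20.

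Origin licensing held the member with the largest response at 24 h in shIRE1 clone 1 and those with the smallest. CDC6, CDT1, GMNN and ORC1 each fell at every time in both shIRE1 clones, by log2 values from -1.23 to -2.55, while the other ORC subunits moved less, ORC6 in clone 3 excepted. At 24 h 7 of the 9 licensing genes were lower in shIRE1 clone 1, 6 in clone 3, 4 in shXBP1 clone 1 and 1 in clone 18.

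CDC6 (ENSG00000094804), the ATPase that helps load the helicase, read 285, 288 and 268 CPM at 0 h, 50.2, 48 and 46.1 at 24 h, 80.3, 75.8 and 82.3 at 48 h and 79.7, 79.6 and 80.1 at 72 h in shIRE1 clone 1. CDC6 in shIRE1 clone 3 read 188, 193 and 185 at 0 h, 42, 41.9 and 42.1 at 24 h, 52.5, 53.5 and 52.3 at 48 h and 45.3, 44.8 and 52.5 at 72 h. All Dox libraries lay below all 0 h libraries in both clones, and after the low at 24 h those at 48 and 72 h were higher again in both. CDC6 had log2 fold changes at 24, 48 and 72 h of -2.55, -1.82 and -1.81 in shIRE1 clone 1 (standard errors 0.044 to 0.045, adjusted p 4.5e-18 to 1.89e-16). CDC6 had changes of -2.17, -1.85 and -2.0 in shIRE1 clone 3 (standard errors 0.055 to 0.056, adjusted p 5.43e-13 to 2.72e-12). CDC6 was called lower at every time in both shIRE1 clones. CDC6 in the shXBP1 libraries read 262, 282 and 282 CPM at 0 h, 181, 162 and 172 at 24 h, 177, 182 and 173 at 48 h and 159, 169.9 and 167 at 72 h in clone 1. CDC6 in clone 18 read 182, 179 and 175 at 0 h, 131, 136 and 129 at 24 h, 144, 140.0 and 141 at 48 h and 138, 144 and 167 at 72 h. Here too every Dox library lay below the 0 h libraries, by a smaller step. CDC6 had changes of -0.71, -0.65 and -0.76 in shXBP1 clone 1 (standard errors 0.052, adjusted p 1.85e-06 to 6.65e-06). CDC6 had changes of -0.44, -0.34 and -0.25 in shXBP1 clone 18 (standard errors 0.067, adjusted p 0.00396 to 0.0338), or -0.34 at 72 h without replicate 3. CDC6 was called lower at every time in both shXBP1 clones.

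CDT1 (ENSG00000167513), which brings MCM to ORC and is destroyed in S phase, read 45.9, 50 and 67.3 CPM at 0 h, 15.5, 19.7 and 15.1 at 24 h, 25.6, 19.4 and 17.4 at 48 h and 20.7, 18.2 and 15.4 at 72 h in shIRE1 clone 1. CDT1 in shIRE1 clone 3 read 52, 50.9 and 64.7 at 0 h, 17.9, 24.2 and 24.5 at 24 h, 24.2, 20.8 and 24.3 at 48 h and 17.1, 18.5 and 11.6 at 72 h. Both clones showed non-overlapping groups at each time, though the libraries of a group differed more than those of CDC6. CDT1 had log2 fold changes at 24, 48 and 72 h of -1.70, -1.38 and -1.59 in shIRE1 clone 1 (standard errors 0.15, adjusted p 1.17e-08 to 1.25e-07). CDT1 had changes of -1.33, -1.28 and -1.84 in shIRE1 clone 3 (standard errors 0.16, adjusted p 1.14e-07 to 5.97e-06). CDT1 was called lower at every time in both shIRE1 clones. CDT1 in the shXBP1 libraries read 185, 96 and 83.4 CPM at 0 h, 38.5, 76.4 and 51.4 at 24 h, 60.3, 38.3 and 53.3 at 48 h and 55.8, 44.1 and 43.6 at 72 h in clone 1. CDT1 in clone 18 read 55.9, 49.3 and 47.1 at 0 h, 38.7, 59.9 and 61.5 at 24 h, 50.6, 47.5 and 64.8 at 48 h and 52.5, 34.1 and 43.3 at 72 h. In clone 1 replicate 1 at 0 h stood far above the others and the Dox libraries still lay below all 3, and in clone 18 every Dox group overlapped 0 h. CDT1 had changes of -1.15, -1.27 and -1.36 in shXBP1 clone 1 (standard errors 0.30 to 0.31, adjusted p 0.0058 to 0.016). CDT1 had changes of 0.08, 0.10 and -0.22 in shXBP1 clone 18 (standard errors 0.18, adjusted p 0.466 to 0.907), or -0.22 at 72 h without replicate 3. CDT1 was called lower at every time in shXBP1 clone 1, and at no time in clone 18. CDT1 is among the most GC-rich members, and in shXBP1 clone 1 GC content moved with the response, as described below.

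GMNN (ENSG00000112312), geminin, the inhibitor of CDT1, read 83.1, 83.2 and 78.2 CPM at 0 h, 20.4, 20.4 and 21.1 at 24 h, 21.3, 21.5 and 23.8 at 48 h and 21.3, 20.6 and 23 at 72 h in shIRE1 clone 1. GMNN in shIRE1 clone 3 read 52.8, 45.4 and 45.6 at 0 h, 19.3, 18.1 and 18.3 at 24 h, 15, 17 and 17.3 at 48 h and 14.9, 15.3 and 17.1 at 72 h. Geminin stayed at its low level from 24 h on, and no Dox library reached a 0 h library. GMNN had log2 fold changes at 24, 48 and 72 h of -1.98, -1.88 and -1.92 in shIRE1 clone 1 (standard errors 0.056 to 0.057, adjusted p 1.13e-15 to 2.15e-15). GMNN had changes of -1.38, -1.55 and -1.62 in shIRE1 clone 3 (standard errors 0.079 to 0.080, adjusted p 1.79e-10 to 2.6e-09). GMNN was called lower at every time in both shIRE1 clones. GMNN in the shXBP1 libraries read 76.7, 78.7 and 82.2 CPM at 0 h, 66.3, 54.5 and 56.7 at 24 h, 63.6, 68.4 and 66.1 at 48 h and 58.1, 64.1 and 60.6 at 72 h in clone 1. GMNN in clone 18 read 61.8, 63.1 and 57.3 at 0 h, 59.1, 54.4 and 52.3 at 24 h, 63.8, 61.1 and 57.2 at 48 h and 54.8, 64 and 64.5 at 72 h. The groups of clone 1 did not overlap those at 0 h, and those of clone 18 did. GMNN had changes of -0.45, -0.28 and -0.40 in shXBP1 clone 1 (standard errors 0.071, adjusted p 0.000881 to 0.0115). GMNN had changes of -0.13, 0.00 and 0.02 in shXBP1 clone 18 (standard errors 0.079, adjusted p 0.505 to 0.998), or -0.03 at 72 h without replicate 3. GMNN was called lower at every time in shXBP1 clone 1, and at no time in clone 18. The mRNAs of CDT1 and of its inhibitor were thus lower together in the shIRE1 clones.

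ORC1 (ENSG00000085840), the ORC subunit whose protein is turned over in the cell cycle, read 109, 119 and 117 CPM at 0 h, 28.3, 29 and 31 at 24 h, 45.3, 40.9 and 43.8 at 48 h and 45.6, 44.8 and 43.6 at 72 h in shIRE1 clone 1. ORC1 in shIRE1 clone 3 read 75.9, 84.4 and 77.3 at 0 h, 28.4, 34.1 and 30.7 at 24 h, 32.5, 34.3 and 35.2 at 48 h and 30.8, 30.9 and 33.8 at 72 h. Groups did not overlap, and in clone 1 the level was higher at 48 and 72 h than at 24 h. ORC1 had log2 fold changes at 24, 48 and 72 h of -1.97, -1.41 and -1.37 in shIRE1 clone 1 (standard errors 0.053 to 0.055, adjusted p 9.58e-16 to 8.7e-14). ORC1 had changes of -1.35, -1.23 and -1.33 in shIRE1 clone 3 (standard errors 0.072, adjusted p 4.84e-10 to 1.15e-09). ORC1 was called lower at every time in both shIRE1 clones. ORC1 in the shXBP1 libraries read 113, 124 and 126 CPM at 0 h, 95.8, 93.6 and 97.7 at 24 h, 98.6, 95.4 and 89.8 at 48 h and 93.2, 95 and 95.3 at 72 h in clone 1. ORC1 in clone 18 read 81.1, 80.6 and 84.6 at 0 h, 75, 74.7 and 75.1 at 24 h, 85.2, 80.3 and 85.8 at 48 h and 84.2, 82.1 and 95.2 at 72 h. In clone 1 all Dox libraries lay below 0 h, and in clone 18 those at 48 and 72 h overlapped it. ORC1 had changes of -0.37, -0.37 and -0.38 in shXBP1 clone 1 (standard errors 0.057, adjusted p 0.000476 to 0.000798). ORC1 had changes of -0.13, 0.03 and 0.09 in shXBP1 clone 18 (standard errors 0.062, adjusted p 0.357 to 0.85), or 0.02 at 72 h without replicate 3. ORC1 was called lower at every time in shXBP1 clone 1, and at no time in clone 18.

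ORC2 (ENSG00000115942), a core ORC subunit and the licensing gene with the smallest mean response at 24 h, read 101, 99 and 94.4 CPM at 0 h, 99.1, 94.6 and 88.6 at 24 h, 80.5, 79.9 and 82.5 at 48 h and 83.5, 90.3 and 88.4 at 72 h in shIRE1 clone 1. ORC2 in shIRE1 clone 3 read 94.4, 83.5 and 82.3 at 0 h, 94.9, 89.5 and 87.8 at 24 h, 74.4, 73.8 and 72.4 at 48 h and 76.3, 76.2 and 83.6 at 72 h. The 24 h libraries overlapped those at 0 h in both clones and the later ones lay lower or overlapped. ORC2 had log2 fold changes at 24, 48 and 72 h of -0.06, -0.27 and -0.17 in shIRE1 clone 1 (standard errors 0.046, adjusted p 3.74e-05 to 0.256). ORC2 had changes of 0.06, -0.25 and -0.15 in shIRE1 clone 3 (standard errors 0.058, adjusted p 0.00169 to 0.43). ORC2 was called lower at 48 and 72 h in shIRE1 clone 1 and lower at 48 and 72 h in shIRE1 clone 3. ORC2 in the shXBP1 libraries read 75, 87 and 88.2 CPM at 0 h, 102, 79.7 and 94.4 at 24 h, 97.2, 107 and 97 at 48 h and 90.9, 94.6 and 93.7 at 72 h in clone 1. ORC2 in clone 18 read 69.4, 78.7 and 73.6 at 0 h, 86.3, 78.1 and 76 at 24 h, 88.2, 90.5 and 79.7 at 48 h and 81.7, 89.6 and 99.1 at 72 h. With shXBP1 the values at 48 and 72 h lay above 0 h in both clones. ORC2 had changes of 0.11, 0.25 and 0.14 in shXBP1 clone 1 (standard errors 0.086 to 0.087, adjusted p 0.0468 to 0.352). ORC2 had changes of 0.12, 0.22 and 0.29 in shXBP1 clone 18 (standard errors 0.083, adjusted p 0.0429 to 0.611), or 0.21 at 72 h without replicate 3 (adjusted p = 0.11, no longer called). ORC2 was called higher at 48 h in shXBP1 clone 1 and higher at 72 h in shXBP1 clone 18. ORC5 behaved alike at 24 h, with -0.07 and -0.09 in the shIRE1 clones, neither called. ORC4 fell by 0.29 in clone 1, and ORC3 fell by 0.68 and 0.62 on the log2 scale in clones 1 and 3. The size of the response was therefore unequal within a complex whose subunits work together.

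**Figure D4:**
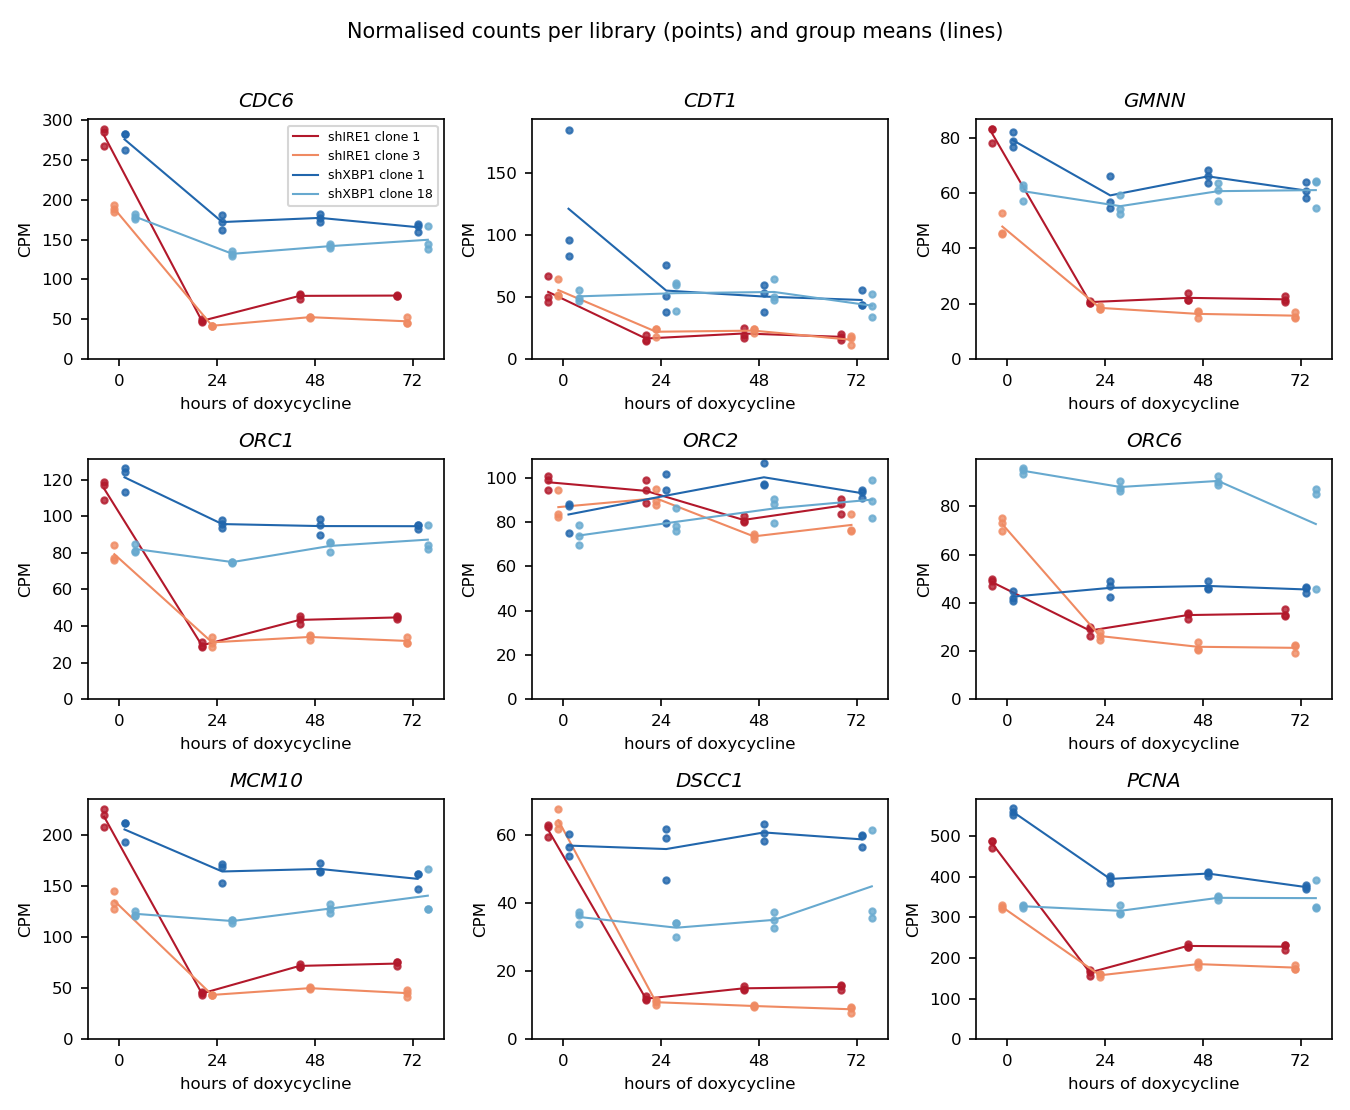
CPM of 9 of the genes in each library (points) and group means (lines) against hours of Dox, coloured by clone, each panel from 0. CDC6, GMNN, ORC1, MCM10, DSCC1 and PCNA fall by 24 h in both shIRE1 clones, ORC2 stays between 69.4 and 107 CPM in every library, and ORC6 reads 45.6 CPM in replicate 3 of shXBP1 clone 18 at 72 h against 85.0 and 87.4 in the other 2.

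All 6 MCM genes, which encode the ring that unwinds DNA, were lower at every time in both shIRE1 clones. Their median log2 fold changes at 24 h were -1.39 in clone 1 and -1.01 in clone 3, and 5 of the 6 were lower in shXBP1 clone 1 and none in clone 18. MCM6, the exception in shXBP1 clone 1, was the deepest of the 6 in shIRE1 clone 3 at 72 h, at -1.71 (standard error 0.046, edgeR adjusted p = 4.42e-13).

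MCM4 (ENSG00000104738), the MCM subunit with the largest mean response at 24 h, read 592, 616 and 583 CPM at 0 h, 146, 141 and 139 at 24 h, 226, 221 and 224 at 48 h and 225, 233 and 229 at 72 h in shIRE1 clone 1. MCM4 in shIRE1 clone 3 read 353, 354 and 347 at 0 h, 139, 144 and 137 at 24 h, 176, 178 and 178 at 48 h and 160.1, 154 and 162 at 72 h. Replicates lay close together, groups did not overlap, and the clones reached nearly the same level at 24 h from unequal starts. MCM4 had log2 fold changes at 24, 48 and 72 h of -2.08, -1.41 and -1.39 in shIRE1 clone 1 (standard errors 0.036 to 0.037, adjusted p 4.5e-18 to 3.77e-16). MCM4 had changes of -1.33, -1.0 and -1.16 in shIRE1 clone 3 (standard errors 0.042, adjusted p 6.99e-12 to 3.1e-11). MCM4 was called lower at every time in both shIRE1 clones. MCM4 in the shXBP1 libraries read 582, 592 and 597 CPM at 0 h, 448, 434 and 441 at 24 h, 455, 455 and 449 at 48 h and 433, 455 and 449.6 at 72 h in clone 1. MCM4 in clone 18 read 383, 377 and 377 at 0 h, 355, 382 and 377 at 24 h, 419, 411 and 391 at 48 h and 398, 395 and 464 at 72 h. In clone 1 all Dox libraries lay below 0 h, whereas in clone 18 those at 48 and 72 h lay above it. MCM4 had changes of -0.45, -0.40 and -0.43 in shXBP1 clone 1 (standard errors 0.037, adjusted p 1.2e-05 to 2.31e-05). MCM4 had changes of -0.03, 0.10 and 0.15 in shXBP1 clone 18 (standard errors 0.066, adjusted p 0.154 to 0.902), or 0.07 at 72 h without replicate 3. MCM4 was called lower at every time in shXBP1 clone 1, and at no time in clone 18.

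MCM2 (ENSG00000073111), the MCM subunit with the smallest mean response at 24 h, read 448, 468 and 476 CPM at 0 h, 169.9, 192 and 189 at 24 h, 242, 225 and 221 at 48 h and 233, 220.4 and 216 at 72 h in shIRE1 clone 1. MCM2 in shIRE1 clone 3 read 357, 378 and 397 at 0 h, 189, 228 and 218 at 24 h, 227, 212 and 217 at 48 h and 199.6, 197 and 175 at 72 h. No Dox library reached a 0 h library in either clone. MCM2 had log2 fold changes at 24, 48 and 72 h of -1.34, -1.01 and -1.06 in shIRE1 clone 1 (standard errors 0.052, adjusted p 8.63e-14 to 3.4e-12). MCM2 had changes of -0.84, -0.79 and -1.0 in shIRE1 clone 3 (standard errors 0.076, adjusted p 2.32e-08 to 3.54e-07). MCM2 was called lower at every time in both shIRE1 clones. MCM2 in the shXBP1 libraries read 670.3, 527 and 529.5 CPM at 0 h, 389, 495 and 450.3 at 24 h, 459, 379 and 426 at 48 h and 444, 399 and 408 at 72 h in clone 1. MCM2 in clone 18 read 361, 328 and 331 at 0 h, 286, 318 and 316 at 24 h, 323, 327 and 374 at 48 h and 353, 298 and 389 at 72 h. The groups of clone 1 stayed below 0 h, and in clone 18 only those at 24 h did. MCM2 had changes of -0.39, -0.46 and -0.49 in shXBP1 clone 1 (standard errors 0.11, adjusted p 0.00651 to 0.022). MCM2 had changes of -0.15, 0.00 and 0.03 in shXBP1 clone 18 (standard errors 0.090, adjusted p 0.534 to 0.986), or -0.06 at 72 h without replicate 3. MCM2 was called lower at every time in shXBP1 clone 1, and at no time in clone 18. Of its 50-base words, 19.9% also occur in an antisense gene, and the use of strand in the counting is not given in the sources used here.

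Every gene of origin firing was lower at every time in both shIRE1 clones. The 8 had a median log2 fold change at 24 h of -1.63 in clone 1 and -1.26 in clone 3, and 7 of them were lower in shXBP1 clone 1, by smaller amounts, and none in clone 18. MCM10, which joins the helicase as it is activated, and CDC45 and GINS2, parts of the active helicase, moved most. The kinase pair CDC7 and DBF4 moved least.

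MCM10 (ENSG00000065328), which joins the helicase as it is activated, read 219.7, 226 and 208 CPM at 0 h, 44.8, 43.3 and 46.2 at 24 h, 74, 70.2 and 71.1 at 48 h and 71.5, 75.4 and 75.3 at 72 h in shIRE1 clone 1. MCM10 in shIRE1 clone 3 read 128, 145 and 134 at 0 h, 43.2, 43 and 43.7 at 24 h, 48.6, 50.3 and 51 at 48 h and 45.3, 41.3 and 48.5 at 72 h. Both clones fell to almost the same level at 24 h, with no overlap with 0 h. MCM10 had log2 fold changes at 24, 48 and 72 h of -2.29, -1.60 and -1.56 in shIRE1 clone 1 (standard errors 0.044 to 0.046, adjusted p 1.86e-17 to 1.11e-15). MCM10 had changes of -1.65, -1.45 and -1.60 in shIRE1 clone 3 (standard errors 0.063, adjusted p 1.55e-11 to 5.59e-11). MCM10 was called lower at every time in both shIRE1 clones. MCM10 in the shXBP1 libraries read 193, 212 and 212 CPM at 0 h, 171, 153 and 168 at 24 h, 164, 173 and 163 at 48 h and 148, 162 and 162 at 72 h in clone 1. MCM10 in clone 18 read 121, 126 and 122 at 0 h, 117, 117 and 114 at 24 h, 132, 128 and 124 at 48 h and 128, 128 and 166 at 72 h. Values in clone 1 lay below 0 h throughout, and those of clone 18 lay below at 24 h and above at 72 h. MCM10 had changes of -0.35, -0.32 and -0.41 in shXBP1 clone 1 (standard errors 0.059, adjusted p 0.00035 to 0.00205). MCM10 had changes of -0.09, 0.06 and 0.20 in shXBP1 clone 18 (standard errors 0.086, adjusted p 0.151 to 0.761), or 0.06 at 72 h without replicate 3. MCM10 was called lower at every time in shXBP1 clone 1, and at no time in clone 18.

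CDC45 (ENSG00000093009), a core part of the active helicase, read 79.9, 81.1 and 79.6 CPM at 0 h, 18.6, 19.9 and 20.6 at 24 h, 28.9, 25.8 and 27.9 at 48 h and 27.6, 27.5 and 24.5 at 72 h in shIRE1 clone 1. CDC45 in shIRE1 clone 3 read 69.1, 63.9 and 65.2 at 0 h, 21.1, 22.8 and 22.1 at 24 h, 20, 20.6 and 20.1 at 48 h and 18.2, 18 and 18.7 at 72 h. In clone 1 the level at 48 and 72 h was above that at 24 h, and in clone 3 it was not. CDC45 had log2 fold changes at 24, 48 and 72 h of -2.03, -1.54 and -1.60 in shIRE1 clone 1 (standard errors 0.060 to 0.062, adjusted p 2.85e-15 to 7.95e-14). CDC45 had changes of -1.59, -1.72 and -1.86 in shIRE1 clone 3 (standard errors 0.058 to 0.059, adjusted p 1.72e-12 to 3.95e-11). CDC45 was called lower at every time in both shIRE1 clones. CDC45 in the shXBP1 libraries read 95.3, 87.9 and 88 CPM at 0 h, 74.8, 77.7 and 77.1 at 24 h, 78.6, 72.3 and 68.5 at 48 h and 73.9, 74.5 and 74.6 at 72 h in clone 1. CDC45 in clone 18 read 62.1, 55.8 and 58 at 0 h, 51.6, 58.5 and 57.6 at 24 h, 61.9, 59.7 and 60.3 at 48 h and 61.2, 56.6 and 75.1 at 72 h. The Dox groups of clone 1 lay below 0 h by a narrow gap and those of clone 18 overlapped it. CDC45 had changes of -0.26, -0.32 and -0.30 in shXBP1 clone 1 (standard errors 0.059, adjusted p 0.00188 to 0.00653). CDC45 had changes of -0.07, 0.05 and 0.14 in shXBP1 clone 18 (standard errors 0.093, adjusted p 0.35 to 0.824), or 0.01 at 72 h without replicate 3. CDC45 was called lower at every time in shXBP1 clone 1, and at no time in clone 18.

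GINS2 (ENSG00000131153), a subunit of the GINS complex, read 108, 105 and 102 CPM at 0 h, 25.6, 28 and 27.7 at 24 h, 38.2, 36.8 and 36.7 at 48 h and 36.4, 37.2 and 35.7 at 72 h in shIRE1 clone 1. GINS2 in shIRE1 clone 3 read 82.4, 75.1 and 73.6 at 0 h, 26, 25.4 and 25.8 at 24 h, 25.9, 26.1 and 27.6 at 48 h and 22.9, 22.9 and 24.4 at 72 h. Groups were well apart from 0 h at all times in both clones. GINS2 had log2 fold changes at 24, 48 and 72 h of -1.96, -1.49 and -1.53 in shIRE1 clone 1 (standard errors 0.049 to 0.050, adjusted p 3.84e-16 to 7.81e-15). GINS2 had changes of -1.59, -1.55 and -1.73 in shIRE1 clone 3 (standard errors 0.059 to 0.060, adjusted p 4.17e-12 to 4.73e-11). GINS2 was called lower at every time in both shIRE1 clones. GINS2 in the shXBP1 libraries read 119, 119 and 126 CPM at 0 h, 96.7, 91.8 and 96.2 at 24 h, 91.5, 91.6 and 89.9 at 48 h and 86.9, 88.4 and 88.2 at 72 h in clone 1. GINS2 in clone 18 read 106, 97.8 and 102 at 0 h, 88, 86.2 and 84.1 at 24 h, 99.9, 94.9 and 100.3 at 48 h and 95.3, 101 and 82.8 at 72 h. In clone 1 every Dox library lay below 0 h, and in clone 18 this held at 24 h only. GINS2 had changes of -0.38, -0.43 and -0.49 in shXBP1 clone 1 (standard errors 0.045 to 0.046, adjusted p 1.81e-05 to 0.000134). GINS2 had changes of -0.24, -0.05 and -0.13 in shXBP1 clone 18 (standard errors 0.068, adjusted p 0.102 to 0.719), or -0.05 at 72 h without replicate 3. GINS2 was called lower at every time in shXBP1 clone 1, and at no time in clone 18. GINS1, GINS3 and GINS4 fell by 1.53, 1.14 and 1.73 on the log2 scale at 24 h in shIRE1 clone 1, so the complex moved in all 4 subunits.

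CDC7 (ENSG00000097046), the kinase that phosphorylates MCM, and the firing gene with the smallest mean response, read 46, 45.3 and 42.2 CPM at 0 h, 25.3, 24.6 and 23.5 at 24 h, 21.4, 20.2 and 21.1 at 48 h and 24.7, 23.1 and 26.6 at 72 h in shIRE1 clone 1. CDC7 in shIRE1 clone 3 read 37.2, 35.8 and 29.9 at 0 h, 27, 24.1 and 22.1 at 24 h, 19.6, 18.7 and 19.5 at 48 h and 18.4, 18.6 and 19.9 at 72 h. It was low from 24 h, and unlike MCM10 it went lower still at 48 h in both clones. CDC7 had log2 fold changes at 24, 48 and 72 h of -0.87, -1.09 and -0.85 in shIRE1 clone 1 (standard errors 0.061 to 0.062, adjusted p 1.68e-11 to 6.26e-10). CDC7 had changes of -0.50, -0.84 and -0.87 in shIRE1 clone 3 (standard errors 0.085 to 0.087, adjusted p 5.13e-07 to 0.000218). CDC7 was called lower at every time in both shIRE1 clones. CDC7 in the shXBP1 libraries read 34.1, 35.9 and 41.7 CPM at 0 h, 38.5, 28.7 and 32.1 at 24 h, 32.3, 38.2 and 35.3 at 48 h and 32.3, 32.7 and 35.3 at 72 h in clone 1. CDC7 in clone 18 read 26.3, 26.9 and 25.7 at 0 h, 30.6, 31 and 28.6 at 24 h, 29.5, 31.5 and 26.2 at 48 h and 28.9, 32.7 and 38.6 at 72 h. Dox groups of clone 1 overlapped 0 h, and in clone 18 the 24 and 72 h libraries lay above it. CDC7 had changes of -0.19, -0.10 and -0.18 in shXBP1 clone 1 (standard errors 0.11, adjusted p 0.2 to 0.528). CDC7 had changes of 0.20, 0.15 and 0.35 in shXBP1 clone 18 (standard errors 0.10, adjusted p 0.0458 to 0.472), or 0.23 at 72 h without replicate 3 (adjusted p = 0.13, no longer called). CDC7 was called higher at 72 h in shXBP1 clone 18, and at no time in clone 1. Between 24 and 48 h CDC7 changed by -0.22 (standard error 0.063, edgeR adjusted p = 0.0121) in shIRE1 clone 1 and -0.34 (standard error 0.086, edgeR adjusted p = 0.00642) in clone 3.

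Primase and the polymerases fell less than the helicase genes. All 10 were lower at 24 h in shIRE1 clone 1 and 8 in clone 3, with medians of -1.08 and -0.80, against 2 in shXBP1 clone 1 and 1 in clone 18. POLE2, a small subunit of the leading-strand polymerase epsilon, had the largest change in the mean over the 2 clones, though POLE was lower in clone 1 and PRIM1 in clone 3, and the delta subunits POLD1 and POLD2 were the 2 not called in clone 3. The primase genes PRIM1 and PRIM2 fell by 1.18 and 1.01 on the log2 scale in clone 1 at 24 h and by 1.15 and 1.05 in clone 3. POLA1, the catalytic subunit of polymerase alpha, changed by -0.95 and -0.62 in the same clones, both called lower.

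POLE2 (ENSG00000100479), the polymerase gene with the largest mean response at 24 h, read 36.5, 33.6 and 30.9 CPM at 0 h, 13.3, 12.5 and 11.2 at 24 h, 12.7, 12.3 and 12.8 at 48 h and 12.4, 12.5 and 13.2 at 72 h in shIRE1 clone 1. POLE2 in shIRE1 clone 3 read 26.1, 22.6 and 22 at 0 h, 10.9, 11.1 and 10.5 at 24 h, 9.50, 11.3 and 10.8 at 48 h and 9.80, 9.94 and 10.4 at 72 h. The level was low but well above the filter, and groups did not overlap at any time. POLE2 had log2 fold changes at 24, 48 and 72 h of -1.45, -1.42 and -1.41 in shIRE1 clone 1 (standard errors 0.074 to 0.076, adjusted p 4.9e-12 to 8.02e-12). POLE2 had changes of -1.12, -1.17 and -1.24 in shIRE1 clone 3 (standard errors 0.085 to 0.086, adjusted p 7.21e-09 to 4.87e-08). POLE2 was called lower at every time in both shIRE1 clones. POLE2 in the shXBP1 libraries read 28.1, 33.6 and 31.2 CPM at 0 h, 32.1, 24.8 and 28.8 at 24 h, 27.3, 28.9 and 26.5 at 48 h and 25.7, 25.7 and 27.6 at 72 h in clone 1. POLE2 in clone 18 read 17.6, 18.3 and 18.5 at 0 h, 18.3, 19.7 and 16.2 at 24 h, 18.8, 20.8 and 17.5 at 48 h and 18.6, 18.1 and 28.4 at 72 h. Most Dox groups overlapped 0 h, and replicate 3 of clone 18 at 72 h stood above the rest of its group. POLE2 had changes of -0.15, -0.19 and -0.26 in shXBP1 clone 1 (standard errors 0.095 to 0.096, adjusted p 0.0543 to 0.278). POLE2 had changes of -0.01, 0.07 and 0.27 in shXBP1 clone 18 (standard errors 0.15, adjusted p 0.271 to 0.995), or 0.02 at 72 h without replicate 3. POLE2 was called at no time in the 2 shXBP1 clones.

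POLD2 (ENSG00000106628), a polymerase delta subunit and the gene of this role with the smallest mean response, read 128, 127 and 135 CPM at 0 h, 104, 115 and 114 at 24 h, 120.1, 116 and 108 at 48 h and 115, 115 and 113 at 72 h in shIRE1 clone 1. POLD2 in shIRE1 clone 3 read 126, 115 and 119 at 0 h, 110.3, 129 and 124 at 24 h, 105, 102 and 105 at 48 h and 104, 106 and 90.7 at 72 h. Clone 1 lay just below 0 h at every time, and clone 3 overlapped it at 24 h. POLD2 had log2 fold changes at 24, 48 and 72 h of -0.23, -0.17 and -0.19 in shIRE1 clone 1 (standard errors 0.051, adjusted p 0.000698 to 0.00571). POLD2 had changes of 0.01, -0.22 and -0.27 in shIRE1 clone 3 (standard errors 0.072, adjusted p 0.00479 to 0.912). POLD2 was called lower at every time in shIRE1 clone 1 and lower at 48 and 72 h in shIRE1 clone 3. POLD2 in the shXBP1 libraries read 214, 178 and 178 CPM at 0 h, 156, 190.1 and 176 at 24 h, 168, 142 and 154 at 48 h and 165, 153 and 158 at 72 h in clone 1. POLD2 in clone 18 read 179, 165 and 176 at 0 h, 151, 192 and 194 at 24 h, 191, 186 and 202 at 48 h and 189, 163 and 161 at 72 h. Clone 1 lay below 0 h at 48 and 72 h, and clone 18 lay above it at 48 h. POLD2 had changes of -0.15, -0.31 and -0.28 in shXBP1 clone 1 (standard errors 0.094, adjusted p 0.0259 to 0.255). POLD2 had changes of 0.04, 0.15 and -0.02 in shXBP1 clone 18 (standard errors 0.090, adjusted p 0.37 to 0.933), or 0.02 at 72 h without replicate 3. POLD2 was called lower at 48 and 72 h in shXBP1 clone 1, and at no time in clone 18.

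Among the sliding clamp and its loaders, 8 of 8 genes were lower at 24 h in shIRE1 clone 1 and 7 in clone 3, with median log2 fold changes of -1.38 and -1.15. Only PCNA was lower in shXBP1 clone 1 at that time and none in clone 18. DSCC1, part of the alternative clamp loader that also serves sister-chromatid cohesion, was the member with the deepest response in shIRE1 clone 3, and its partner gene CHTF18 was the least expressed member. RFC3, whose promoter is shown above, fell by 2.08 and 1.85 on the log2 scale at 24 h in clones 1 and 3, while its partner in the same complex, RFC1, moved far less.

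DSCC1 (ENSG00000136982), a subunit of that loader, read 63, 62.5 and 59.4 CPM at 0 h, 11.4, 12.6 and 11.7 at 24 h, 14.3, 14.8 and 15.7 at 48 h and 14.5, 15.8 and 15.7 at 72 h in shIRE1 clone 1. DSCC1 in shIRE1 clone 3 read 67.7, 63.7 and 61.9 at 0 h, 11.5, 10.2 and 10.9 at 24 h, 9.39, 9.97 and 9.87 at 48 h and 9.21, 7.80 and 9.31 at 72 h. Both clones started near the same level, and at 72 h the libraries of clone 3 lay below those at 24 h while those of clone 1 lay above. DSCC1 had log2 fold changes at 24, 48 and 72 h of -2.38, -2.04 and -2.01 in shIRE1 clone 1 (standard errors 0.059 to 0.060, adjusted p 3.11e-16 to 2.21e-15). DSCC1 had changes of -2.58, -2.73 and -2.89 in shIRE1 clone 3 (standard errors 0.078 to 0.079, adjusted p 4.91e-13 to 9.83e-12). DSCC1 was called lower at every time in both shIRE1 clones. DSCC1 in the shXBP1 libraries read 54, 56.6 and 60.4 CPM at 0 h, 62, 46.8 and 59.1 at 24 h, 60.8, 63.3 and 58.5 at 48 h and 56.4, 60.1 and 59.9 at 72 h in clone 1. DSCC1 in clone 18 read 36.6, 37.4 and 33.9 at 0 h, 34.2, 34.2 and 30 at 24 h, 35.2, 37.6 and 32.6 at 48 h and 35.7, 37.6 and 61.6 at 72 h. No Dox group lay apart from 0 h in either clone, and replicate 3 of clone 18 at 72 h read like clone 1. DSCC1 had changes of -0.05, 0.08 and 0.02 in shXBP1 clone 1 (standard errors 0.090, adjusted p 0.54 to 0.863). DSCC1 had changes of -0.13, -0.03 and 0.33 in shXBP1 clone 18 (standard errors 0.16, adjusted p 0.207 to 0.933), or 0.03 at 72 h without replicate 3. DSCC1 was called at no time in the 2 shXBP1 clones.

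PCNA (ENSG00000132646), the sliding clamp, read 488, 488 and 471 CPM at 0 h, 165, 171 and 156 at 24 h, 228, 227 and 234 at 48 h and 231, 232 and 221 at 72 h in shIRE1 clone 1. PCNA in shIRE1 clone 3 read 326, 329.6 and 321 at 0 h, 153, 159 and 159.7 at 24 h, 179, 190.2 and 186 at 48 h and 173, 172 and 183 at 72 h. The groups did not overlap, and both clones read higher at 48 h than at 24 h. PCNA had log2 fold changes at 24, 48 and 72 h of -1.56, -1.07 and -1.08 in shIRE1 clone 1 (standard errors 0.039, adjusted p 3.02e-16 to 2.52e-14). PCNA had changes of -1.06, -0.82 and -0.90 in shIRE1 clone 3 (standard errors 0.045, adjusted p 1.41e-10 to 4.63e-10). PCNA was called lower at every time in both shIRE1 clones. PCNA in the shXBP1 libraries read 559, 554 and 571 CPM at 0 h, 403, 385 and 396 at 24 h, 412, 410.1 and 403 at 48 h and 381, 375 and 369.5 at 72 h in clone 1. PCNA in clone 18 read 329, 331 and 322 at 0 h, 309.9, 331 and 309 at 24 h, 354, 349 and 342 at 48 h and 324, 326 and 394 at 72 h. In clone 1 all Dox libraries lay below 0 h, with a gap, and in clone 18 they did not. PCNA had changes of -0.53, -0.48 and -0.60 in shXBP1 clone 1 (standard errors 0.039, adjusted p 1.31e-06 to 8.34e-06). PCNA had changes of -0.05, 0.09 and 0.09 in shXBP1 clone 18 (standard errors 0.071, adjusted p 0.434 to 0.827), or -0.01 at 72 h without replicate 3. PCNA was called lower at every time in shXBP1 clone 1, and at no time in clone 18.

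RFC1 (ENSG00000035928), the large subunit of the clamp loader, with the smallest mean response of this role, read 171, 165 and 162 CPM at 0 h, 124, 118 and 116 at 24 h, 121, 119 and 125 at 48 h and 119.8, 125 and 127 at 72 h in shIRE1 clone 1. RFC1 in shIRE1 clone 3 read 125, 153 and 146 at 0 h, 123, 113 and 109.5 at 24 h, 104, 104 and 103 at 48 h and 101, 101 and 118 at 72 h. The fall was small and the groups still did not overlap. RFC1 had log2 fold changes at 24, 48 and 72 h of -0.48, -0.45 and -0.42 in shIRE1 clone 1 (standard errors 0.039, adjusted p 3.89e-09 to 1.82e-08). RFC1 had changes of -0.30, -0.45 and -0.42 in shIRE1 clone 3 (standard errors 0.076, adjusted p 0.000105 to 0.00461). RFC1 was called lower at every time in both shIRE1 clones. RFC1 in the shXBP1 libraries read 119, 139.5 and 141 CPM at 0 h, 144, 123 and 132 at 24 h, 131, 153 and 133 at 48 h and 134, 139 and 136 at 72 h in clone 1. RFC1 in clone 18 read 128, 133 and 129 at 0 h, 136, 125 and 122 at 24 h, 133, 138 and 122 at 48 h and 129, 133 and 142 at 72 h. All Dox groups overlapped 0 h in both clones. RFC1 had changes of -0.03, 0.04 and 0.01 in shXBP1 clone 1 (standard errors 0.079, adjusted p 0.702 to 0.93). RFC1 had changes of -0.03, 0.01 and 0.06 in shXBP1 clone 18 (standard errors 0.064, adjusted p 0.618 to 0.946), or 0.01 at 72 h without replicate 3. RFC1 was called at no time in the 2 shXBP1 clones.

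The 3 subunits of replication protein A, which coats single-stranded DNA, fell by small amounts, with medians at 24 h of -0.49 in shIRE1 clone 1 and -0.29 in clone 3. RPA2 was lower in shXBP1 clone 1 at 24 h, with -0.23 (standard error 0.059, edgeR adjusted p = 0.0133), and was the member not called in shIRE1 clone 3 at 72 h, with -0.15 (standard error 0.067, edgeR adjusted p = 0.0744).

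RPA3 (ENSG00000106399), the smallest subunit and the one with the largest mean response, read 41.6, 41.7 and 37.8 CPM at 0 h, 29.6, 30.6 and 26.1 at 24 h, 21.5, 19.9 and 20.6 at 48 h and 20.7, 21.3 and 20.1 at 72 h in shIRE1 clone 1. RPA3 in shIRE1 clone 3 read 47.8, 43.6 and 43.2 at 0 h, 26.7, 25.2 and 25.4 at 24 h, 16.4, 17.2 and 17.7 at 48 h and 17.8, 17.3 and 17.2 at 72 h. Unlike most members it went lower again between 24 and 48 h, in both clones. RPA3 had log2 fold changes at 24, 48 and 72 h of -0.49, -0.96 and -0.96 in shIRE1 clone 1 (standard errors 0.065 to 0.068, adjusted p 3.28e-10 to 2.91e-06). RPA3 had changes of -0.81, -1.40 and -1.38 in shIRE1 clone 3 (standard errors 0.063 to 0.064, adjusted p 7.14e-11 to 6.49e-08). RPA3 was called lower at every time in both shIRE1 clones. RPA3 in the shXBP1 libraries read 45.5, 53.7 and 52.4 CPM at 0 h, 50, 45.6 and 48.3 at 24 h, 46.1, 52.8 and 52.7 at 48 h and 46.9, 50.7 and 52 at 72 h in clone 1. RPA3 in clone 18 read 41.8, 44.3 and 41.2 at 0 h, 42.6, 36.7 and 36.2 at 24 h, 41.5, 43.2 and 40.5 at 48 h and 38.2, 46.6 and 45.2 at 72 h. Every Dox group overlapped 0 h. RPA3 had changes of -0.10, -0.02 and -0.04 in shXBP1 clone 1 (standard errors 0.080, adjusted p 0.37 to 0.871). RPA3 had changes of -0.14, -0.02 and 0.04 in shXBP1 clone 18 (standard errors 0.086, adjusted p 0.53 to 0.913), or 0.00 at 72 h without replicate 3. RPA3 was called at no time in the 2 shXBP1 clones. The change from 24 to 48 h was -0.47 (standard error 0.068, edgeR adjusted p = 2.93e-05) in shIRE1 clone 1 and -0.59 (standard error 0.064, edgeR adjusted p = 4.16e-06) in clone 3.

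RPA1 (ENSG00000132383), the DNA-binding subunit, with the smallest mean response of this role, read 421, 411 and 412 CPM at 0 h, 309, 314 and 319 at 24 h, 333, 334 and 353 at 48 h and 344, 343 and 348 at 72 h in shIRE1 clone 1. RPA1 in shIRE1 clone 3 read 367, 375 and 357 at 0 h, 310.0, 322 and 317 at 24 h, 294, 305 and 303 at 48 h and 304, 301 and 334 at 72 h. Close replicates left the groups apart despite the small change. RPA1 had log2 fold changes at 24, 48 and 72 h of -0.40, -0.28 and -0.27 in shIRE1 clone 1 (standard errors 0.033, adjusted p 4e-09 to 8.98e-07). RPA1 had changes of -0.22, -0.29 and -0.24 in shIRE1 clone 3 (standard errors 0.046, adjusted p 5.57e-05 to 0.00128). RPA1 was called lower at every time in both shIRE1 clones. RPA1 in the shXBP1 libraries read 395, 408 and 418 CPM at 0 h, 444, 409 and 419 at 24 h, 429, 444 and 419.6 at 48 h and 420.4, 435 and 433 at 72 h in clone 1. RPA1 in clone 18 read 349, 346 and 343 at 0 h, 359, 339 and 348 at 24 h, 378, 376 and 371 at 48 h and 373, 390.2 and 424 at 72 h. With shXBP1 the libraries at 48 and 72 h lay above 0 h in both clones. RPA1 had changes of 0.03, 0.07 and 0.06 in shXBP1 clone 1 (standard errors 0.043 to 0.044, adjusted p 0.267 to 0.588). RPA1 had changes of 0.01, 0.12 and 0.20 in shXBP1 clone 18 (standard errors 0.054, adjusted p 0.0338 to 0.96), or 0.15 at 72 h without replicate 3 (adjusted p = 0.0595, no longer called). RPA1 was called higher at 72 h in shXBP1 clone 18, and at no time in clone 1.

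On the lagging strand, FEN1, which removes the flaps of Okazaki fragments, and LIG1, which seals them, were lower at every time in both shIRE1 clones and in shXBP1 clone 1, and FEN1 also at 24 h in shXBP1 clone 18.

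FEN1 (ENSG00000168496), the flap endonuclease, read 276, 288 and 286 CPM at 0 h, 85.1, 93.4 and 93.8 at 24 h, 137, 131 and 130.1 at 48 h and 133, 130.0 and 131 at 72 h in shIRE1 clone 1. FEN1 in shIRE1 clone 3 read 228, 223 and 226 at 0 h, 88.1, 88.1 and 87.7 at 24 h, 100.2, 98.7 and 102 at 48 h and 90.2, 92.8 and 90.4 at 72 h. Clone 3 held nearly the same value in its 3 libraries at 24 h, and neither clone overlapped 0 h. FEN1 had log2 fold changes at 24, 48 and 72 h of -1.65, -1.09 and -1.11 in shIRE1 clone 1 (standard errors 0.044, adjusted p 6.7e-16 to 1e-13). FEN1 had changes of -1.37, -1.18 and -1.32 in shIRE1 clone 3 (standard errors 0.044, adjusted p 3.03e-12 to 1.23e-11). FEN1 was called lower at every time in both shIRE1 clones. FEN1 in the shXBP1 libraries read 296, 280.1 and 275 CPM at 0 h, 216, 228 and 225 at 24 h, 230.4, 215 and 209 at 48 h and 215, 212 and 211 at 72 h in clone 1. FEN1 in clone 18 read 227, 214 and 219 at 0 h, 174, 177 and 176 at 24 h, 195, 192 and 206 at 48 h and 197, 186 and 214 at 72 h. Clone 1 lay below 0 h throughout and clone 18 at 24 and 48 h. FEN1 had changes of -0.37, -0.40 and -0.44 in shXBP1 clone 1 (standard errors 0.050, adjusted p 7.1e-05 to 0.000314). FEN1 had changes of -0.32, -0.15 and -0.13 in shXBP1 clone 18 (standard errors 0.058, adjusted p 0.0116 to 0.15), or -0.19 at 72 h without replicate 3 (adjusted p = 0.0268, then called). FEN1 was called lower at every time in shXBP1 clone 1 and lower at 24 h in shXBP1 clone 18.

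LIG1 (ENSG00000105486), DNA ligase I, read 128, 136 and 143 CPM at 0 h, 46.6, 54.7 and 56.6 at 24 h, 74, 67.6 and 63.7 at 48 h and 71.3, 63.7 and 65.1 at 72 h in shIRE1 clone 1. LIG1 in shIRE1 clone 3 read 99.4, 115 and 117 at 0 h, 51.8, 66.1 and 62.2 at 24 h, 74.6, 68.4 and 73.4 at 48 h and 65.6, 65 and 57.6 at 72 h. No overlap with 0 h was seen in either clone. LIG1 had log2 fold changes at 24, 48 and 72 h of -1.37, -0.98 and -1.03 in shIRE1 clone 1 (standard errors 0.072 to 0.073, adjusted p 7.85e-12 to 5.81e-10). LIG1 had changes of -0.88, -0.63 and -0.83 in shIRE1 clone 3 (standard errors 0.091 to 0.092, adjusted p 1.58e-06 to 2.57e-05). LIG1 was called lower at every time in both shIRE1 clones. LIG1 in the shXBP1 libraries read 197, 159.6 and 159.7 CPM at 0 h, 114, 144 and 131 at 24 h, 131, 109 and 116 at 48 h and 127, 115 and 121 at 72 h in clone 1. LIG1 in clone 18 read 112, 101 and 108 at 0 h, 93, 103 and 107 at 24 h, 111, 104 and 114 at 48 h and 111, 92.8 and 117 at 72 h. In clone 1 all Dox libraries lay below 0 h, and in clone 18 they overlapped it. LIG1 had changes of -0.43, -0.55 and -0.53 in shXBP1 clone 1 (standard errors 0.11, adjusted p 0.00284 to 0.0121). LIG1 had changes of -0.08, 0.03 and 0.01 in shXBP1 clone 18 (standard errors 0.083 to 0.084, adjusted p 0.736 to 0.975), or -0.06 at 72 h without replicate 3. LIG1 was called lower at every time in shXBP1 clone 1, and at no time in clone 18.

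The 4 genes of fork protection were lower at every time in both shIRE1 clones, with medians at 24 h of -1.44 and -1.05, against 1 lower in shXBP1 clone 1 and none in clone 18. TIMELESS, the partner of TIPIN, fell by 1.04 and 0.64 on the log2 scale at 24 h in the shIRE1 clones.

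WDHD1 (ENSG00000198554), which links the helicase to polymerase alpha, with the largest mean response of this role, read 86.6, 84.2 and 78.1 CPM at 0 h, 23.4, 23.5 and 22.3 at 24 h, 31.1, 29.1 and 33 at 48 h and 32.4, 30.8 and 34.1 at 72 h in shIRE1 clone 1. WDHD1 in shIRE1 clone 3 read 66.2, 71.8 and 70.1 at 0 h, 22.7, 20.6 and 21.1 at 24 h, 21.9, 22.9 and 23.1 at 48 h and 20.5, 21.2 and 25.7 at 72 h. The groups did not overlap in either clone. WDHD1 had log2 fold changes at 24, 48 and 72 h of -1.85, -1.42 and -1.36 in shIRE1 clone 1 (standard errors 0.057 to 0.059, adjusted p 4.53e-15 to 2.65e-13). WDHD1 had changes of -1.70, -1.62 and -1.64 in shIRE1 clone 3 (standard errors 0.076 to 0.077, adjusted p 8.86e-11 to 2.41e-10). WDHD1 was called lower at every time in both shIRE1 clones. WDHD1 in the shXBP1 libraries read 67.6, 81 and 80.7 CPM at 0 h, 82.2, 67.5 and 76.7 at 24 h, 82.2, 90.3 and 82.7 at 48 h and 74.4, 82.3 and 77.4 at 72 h in clone 1. WDHD1 in clone 18 read 55.6, 60.9 and 60.6 at 0 h, 61, 58 and 55.3 at 24 h, 67.3, 63.8 and 62.1 at 48 h and 61.6, 66.4 and 83.7 at 72 h. In clone 1 only the 48 h libraries lay apart from 0 h, above it, and in clone 18 those at 48 and 72 h did so. WDHD1 had changes of -0.04, 0.14 and 0.01 in shXBP1 clone 1 (standard errors 0.086, adjusted p 0.247 to 0.963). WDHD1 had changes of -0.02, 0.12 and 0.26 in shXBP1 clone 18 (standard errors 0.097, adjusted p 0.0993 to 0.953), or 0.12 at 72 h without replicate 3. WDHD1 was called at no time in the 2 shXBP1 clones.

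CLSPN (ENSG00000092853), claspin, which passes the checkpoint signal to CHK1, read 68.9, 70.2 and 67.1 CPM at 0 h, 18.1, 16.7 and 17.2 at 24 h, 31.6, 29.5 and 33.5 at 48 h and 32.2, 33.8 and 32.7 at 72 h in shIRE1 clone 1. CLSPN in shIRE1 clone 3 read 34.4, 52 and 47.9 at 0 h, 15.7, 17.3 and 16 at 24 h, 18.9, 20.5 and 18.1 at 48 h and 18.2, 18.1 and 20.4 at 72 h. In clone 1 the level at 48 h was well above that at 24 h, and in clone 3 the 0 h libraries were more spread. CLSPN had log2 fold changes at 24, 48 and 72 h of -1.99, -1.13 and -1.07 in shIRE1 clone 1 (standard errors 0.053 to 0.056, adjusted p 1.08e-15 to 3.08e-12). CLSPN had changes of -1.46, -1.23 and -1.26 in shIRE1 clone 3 (standard errors 0.12, adjusted p 1.46e-07 to 3.48e-07). CLSPN was called lower at every time in both shIRE1 clones. CLSPN in the shXBP1 libraries read 58, 62.6 and 61.1 CPM at 0 h, 59.9, 49.4 and 52.6 at 24 h, 54.2, 65.3 and 52.1 at 48 h and 48.9, 53.8 and 55.3 at 72 h in clone 1. CLSPN in clone 18 read 41.7, 46.6 and 44.7 at 0 h, 47.5, 42 and 43.7 at 24 h, 49.6, 49.4 and 46.3 at 48 h and 48.3, 49 and 59.2 at 72 h. Most Dox groups overlapped 0 h, except clone 1 at 72 h, below it, and clone 18 at 72 h, above it. CLSPN had changes of -0.19, -0.10 and -0.22 in shXBP1 clone 1 (standard errors 0.089 to 0.090, adjusted p 0.0724 to 0.417). CLSPN had changes of 0.00, 0.13 and 0.24 in shXBP1 clone 18 (standard errors 0.086, adjusted p 0.0883 to 0.998), or 0.14 at 72 h without replicate 3. CLSPN was called at no time in the 2 shXBP1 clones.

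TIPIN (ENSG00000075131), part of the fork protection complex, with the smallest mean response of this role, read 45.4, 45.7 and 41.6 CPM at 0 h, 24.4, 22.9 and 22.5 at 24 h, 22.8, 25.3 and 26.3 at 48 h and 24.9, 24.6 and 25.6 at 72 h in shIRE1 clone 1. TIPIN in shIRE1 clone 3 read 31.1, 32 and 30.4 at 0 h, 21.2, 19.5 and 19.3 at 24 h, 17.6, 18.9 and 18.9 at 48 h and 17.9, 17.9 and 21.7 at 72 h. Groups were apart from 0 h in both clones. TIPIN had log2 fold changes at 24, 48 and 72 h of -0.93, -0.83 and -0.82 in shIRE1 clone 1 (standard errors 0.060 to 0.061, adjusted p 1.57e-10 to 7.73e-10). TIPIN had changes of -0.65, -0.76 and -0.72 in shIRE1 clone 3 (standard errors 0.076 to 0.077, adjusted p 4.9e-07 to 6.19e-06). TIPIN was called lower at every time in both shIRE1 clones. TIPIN in the shXBP1 libraries read 36.1, 42.1 and 38.3 CPM at 0 h, 36.1, 28.9 and 33.7 at 24 h, 33.9, 39.6 and 36.2 at 48 h and 33.8, 33.2 and 34.5 at 72 h in clone 1. TIPIN in clone 18 read 25.2, 26.9 and 27 at 0 h, 29.2, 25.5 and 24.8 at 24 h, 30.2, 29.7 and 26.4 at 48 h and 25.8, 31.5 and 38.4 at 72 h. Clone 1 at 72 h lay below 0 h and the other groups overlapped it. TIPIN had changes of -0.27, -0.11 and -0.22 in shXBP1 clone 1 (standard errors 0.089, adjusted p 0.0445 to 0.389). TIPIN had changes of 0.01, 0.12 and 0.28 in shXBP1 clone 18 (standard errors 0.12, adjusted p 0.157 to 0.992), or 0.12 at 72 h without replicate 3. TIPIN was called lower at 24 h in shXBP1 clone 1, and at no time in clone 18. Of its 50-base words, 20.4% also occur in RPL9 and its copies on the same strand, which makes its level uncertain.

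CDC25A (ENSG00000164045), the phosphatase that removes the inhibitory phosphates of CDK2, read 155, 153 and 151 CPM at 0 h, 54.2, 52.8 and 54 at 24 h, 75.9, 72.6 and 74.7 at 48 h and 78.9, 76 and 77.2 at 72 h in shIRE1 clone 1. CDC25A in shIRE1 clone 3 read 90.6, 95.5 and 90.9 at 0 h, 48.4, 50.1 and 51.7 at 24 h, 52.3, 52.8 and 55.7 at 48 h and 49, 48.9 and 53.4 at 72 h. The groups did not overlap, and clone 1 read higher at 48 than at 24 h. CDC25A had log2 fold changes at 24, 48 and 72 h of -1.51, -1.04 and -0.98 in shIRE1 clone 1 (standard errors 0.039 to 0.040, adjusted p 5.34e-16 to 1.18e-13). CDC25A had changes of -0.89, -0.79 and -0.89 in shIRE1 clone 3 (standard errors 0.054 to 0.055, adjusted p 1.98e-09 to 6.37e-09). CDC25A was called lower at every time in both shIRE1 clones. CDC25A in the shXBP1 libraries read 143, 151 and 147 CPM at 0 h, 125, 116 and 126 at 24 h, 128, 129 and 120.4 at 48 h and 113, 119.8 and 120.1 at 72 h in clone 1. CDC25A in clone 18 read 106, 108 and 112 at 0 h, 95.7, 96.8 and 94.7 at 24 h, 106, 106 and 109 at 48 h and 107, 111 and 122 at 72 h. Dox libraries of clone 1 lay below 0 h at all times, and those of clone 18 at 24 h only. CDC25A had changes of -0.29, -0.24 and -0.34 in shXBP1 clone 1 (standard errors 0.050, adjusted p 0.000392 to 0.00442). CDC25A had changes of -0.18, -0.02 and 0.07 in shXBP1 clone 18 (standard errors 0.056, adjusted p 0.146 to 0.866), or 0.01 at 72 h without replicate 3. CDC25A was called lower at every time in shXBP1 clone 1, and at no time in clone 18.

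The low at 24 h was followed by a partial return in shIRE1 clone 1. From 24 to 48 h, 31 members rose there and 4 fell, against 16% and 14.3% of all genes, whereas in clone 3 9 rose and 8 fell, against 17.2% and 17.4% (5 and 6 without replicate 3 at 48 h). CDC6 changed by 0.73 (standard error 0.045, edgeR adjusted p = 9.18e-10) in clone 1 and 0.33 (standard error 0.055, edgeR adjusted p = 0.000306) in clone 3, where the libraries labelled 48 h lay with clone 1 at the 13 genes. The 4 that fell in clone 1 were CDC7, RPA3, ORC2 and ORC4, and the 8 in clone 3 were MCM6, ORC6, CDC7, RPA3, POLD2, ORC2, RFC4 and PRIM1. CDC7, RPA3 and ORC2 fell in both. From 48 to 72 h no member was called in either clone by edgeR, where 0.869% and 0.936% of all genes were, with 3 and 12 members at an unadjusted p under 0.05 and 0 and 3 called by DESeq2. No member was called between successive times in the shXBP1 clones by edgeR, with 0% of all genes called in clone 1 from 24 to 48 h and 0.012% from 48 to 72 h, and with 1 and 3 members at an unadjusted p under 0.05 in clone 1 and 8 and 2 in clone 18.

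The response to shIRE1 was deeper than that to shXBP1 in most members. In a fit over all 48 libraries, the change averaged over the shIRE1 clones was lower than that averaged over the shXBP1 clones in 46 members at 24 h, 47 at 48 h and 48 at 72 h, against 19.7%, 28% and 27.4% of all genes, and higher in none. The median differences were -0.98, -0.87 and -0.92 on the log2 scale. Without the 7 libraries that lay with another clone, the counts were 46, 48 and 46, of which the 48 h value rests on shIRE1 clone 1 alone and the 72 h value on shIRE1 clone 3 alone. The largest difference was that of DSCC1, -2.39 (standard error 0.12, edgeR adjusted p = 3.55e-20) at 24 h. CDC6, although lower in both shXBP1 clones, still differed by -1.80 (standard error 0.055, edgeR adjusted p = 2.87e-26) at 24 h. POLD1, POLD2 and CHTF18 were not called at any time, ORC2 and ORC5 not at 24 h and MCM5 not at 48 h. The difference of CHTF18 at 24 h was -0.44 (standard error 0.36, edgeR adjusted p = 0.353), while that of POLD2 was -0.06 (standard error 0.082, edgeR adjusted p = 0.586). With offsets for the GC profile of each library, described below, 48, 50 and 50 members were lower at the 3 times. Of all genes, 39.9%, 57.3% and 56.6% were then called, in either direction. POLD1 at 48 h was among the members called, with -0.64 (edgeR adjusted p = 4.82e-09). These comparisons of clones rest on 2 clones per target, which the fit does not treat as replicates of a target. With single pairs of clones, shIRE1 clone 3 against shXBP1 clone 1 gave the fewest members, 39, 43 and 43, all lower. Of all genes, 39.2%, 55.2% and 52% were called in that pair, in either direction. The other pairs gave 44 to 48 members, against 25.8% to 48.4% of all genes.

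Some members responded unequally in the clones of a target. At 24 h 28 members differed between the shIRE1 clones, 26 of them lower in clone 1 and 2 (ORC6 and RPA3) lower in clone 3, against 28.2% of all genes called. At 48 and 72 h 15 members (29.4%) differed at each time, near the share of all genes (30.8% and 27.5%). Of these, 8 were lower in clone 1 and 7 lower in clone 3 at 48 h, and 5 and 10 at 72 h. MCM4 differed most among those deeper in clone 1, by -0.75 (standard error 0.060, edgeR adjusted p = 2.26e-12) at 24 h. ORC6, the ORC subunit least tightly held in the complex, read 49, 49.7 and 47 CPM at 0 h, 30.1, 29.3 and 26.1 at 24 h, 35.6, 33.4 and 35.7 at 48 h and 34.4, 34.7 and 37.5 at 72 h in shIRE1 clone 1. ORC6 in shIRE1 clone 3 read 75, 73 and 69.9 at 0 h, 27.8, 24.7 and 26.1 at 24 h, 20.4, 23.8 and 21 at 48 h and 22.2, 19.1 and 22.7 at 72 h. It started higher in clone 3 and ended lower, and its response differed by 1.32 (standard error 0.17, edgeR adjusted p = 4.93e-08) at 72 h. At 48 and 72 h the ORC6 values went with the labelled clone, not with the clone that the 13 genes point to.

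Between the shXBP1 clones 7 members (13.7%) differed at 24 h, below the share of all genes (17.1%). All 7 were lower in clone 1, and 6 to 14 differed when each of the 48 libraries was left out in turn. At 48 h 25 differed (24.1% of all genes), all lower in clone 1. At 72 h 35 differed (24.6%), 34 of them lower in clone 1 and ORC6 higher. Without the 7 libraries that lay with another clone the counts were 14, 25 and 29. CDT1 and CHTF18 differed most, CDT1 by -1.36 (standard error 0.33, edgeR adjusted p = 0.00223) at 48 h and CHTF18 by -1.41 (standard error 0.50, edgeR adjusted p = 0.0338) at 72 h. ORC6 read 93.4, 95.3 and 95.8 CPM at 0 h, 90.4, 87.5 and 86.3 at 24 h, 92.7, 90.2 and 88.8 at 48 h and 85, 87.4 and 45.6 at 72 h in shXBP1 clone 18. Only its replicate 3 at 72 h was low, at the level of shXBP1 clone 1.

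The clones of a target already differed before Dox. At 0 h 35 members were higher in shIRE1 clone 1 than in clone 3 (19.2% of all genes) and 2, MCM6 and ORC6, lower. Between shXBP1 clones 1 and 18, 42 were higher in clone 1 (24.5%) and 3, ORC6, POLA1 and ORC5, lower. MCM4, for instance, differed by 0.77 (standard error 0.042, edgeR adjusted p = 7.4e-18) between the shIRE1 clones at 0 h. Clone 1 of each target is thus the clone with more replication mRNA at the start. At 24 h, 26 of the 28 members that differed between the shIRE1 clones were deeper in clone 1. Between the shXBP1 clones only 7 (13.7%) differed then, below the share of all genes (17.1%). The start and the change share the 0 h libraries, so that no relation between them was tested.

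In shXBP1 clone 1 the response moved with the base composition of the gene. Over the 51 members, which share libraries and are not replicates, the log2 fold change correlated with exon GC content. There r was -0.614, -0.776 and -0.708 at 24, 48 and 72 h (Spearman rho -0.474, -0.696 and -0.602). In shXBP1 clone 18 r was -0.113, -0.118 and -0.517 at these times. In the shIRE1 clones it ranged from -0.0633 (clone 1 at 24 h) to 0.255 (clone 3 at 48 h). Replicate 1 of shXBP1 clone 1 at 0 h stood apart from the other 2 in its GC profile, with a contrast of 0.685 against 0.0833 and 0.0386 (log2 difference between the GC-richest and the GC-poorest genes, each relative to the clone's own libraries). Dox libraries of this clone were spread too, with -0.341 and 0.426 in replicates 1 and 2 at 24 h and -0.459 in replicate 2 at 48 h. In the 3 libraries at 0 h CDT1 read 185, 96 and 83.4 CPM, CHTF18 43.2, 18.3 and 15.2 and POLD1 167, 86.3 and 81.9. Each was highest in replicate 1. With offsets for each library's GC profile, added after the data had been seen, CDT1 changed by -0.78, -0.71 and -0.81 at the 3 times in place of -1.15, -1.27 and -1.36. CHTF18 changed by -0.62, -0.67 and -0.97 in place of -1.05, -1.30 and -1.60, and POLD1 by -0.37, -0.45 and -0.50 in place of -0.71, -0.98 and -1.02. Called members in this clone were then 31, 33 and 36 in place of 24, 27 and 29, while those over all genes went to 43.5%, 42.4% and 45.7% from 26.7%, 32% and 33.6%, so the rise is not particular to the members.

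**Figure D5:**
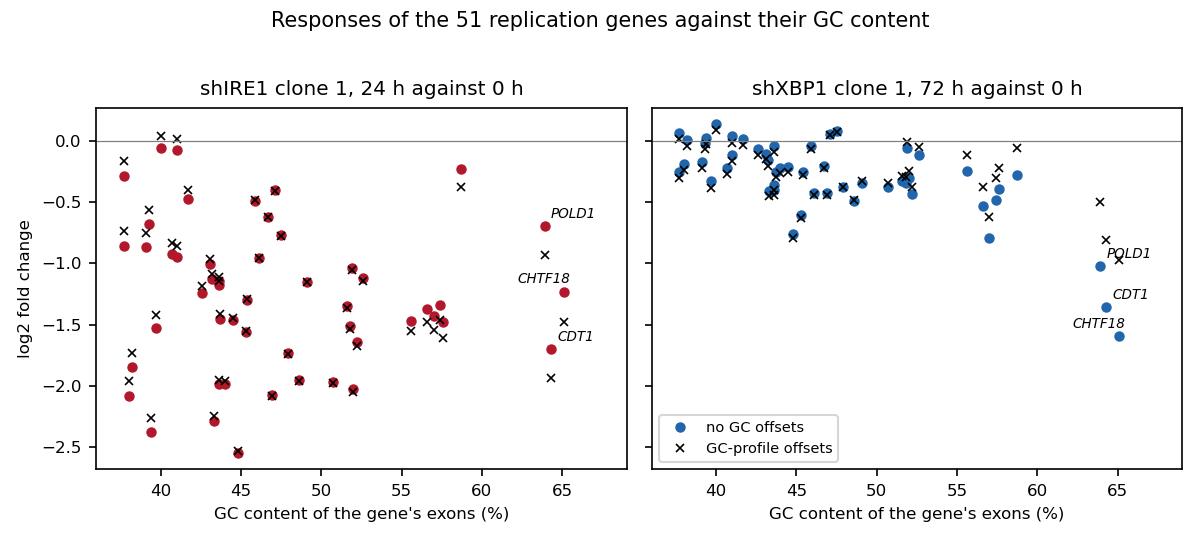
Log2 fold change of each of the 51 genes (points) against the GC content of its exons, for shIRE1 clone 1 at 24 h (left) and shXBP1 clone 1 at 72 h (right), with the value under GC-profile offsets as crosses. In shXBP1 clone 1 the 3 genes richest in GC, CHTF18, CDT1 and POLD1, lie lowest at -1.60, -1.36 and -1.02 and move up with the offsets, while in shIRE1 clone 1 no trend with GC is seen.

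Per kilobase of exon, PCNA had the highest level of the 51 in shIRE1 clone 1 at 0 h, 344 ± 6.98 CPM per kb (SD, n = 3), followed by MCM3 with 135 ± 2.10, FEN1 with 129 ± 3.10 and MCM7 with 119 ± 1.70, and CHTF18 the lowest with 1.62 ± 0.419. At 24 h PCNA was still highest among these with 117 ± 5.19 CPM per kb and MCM3 read 52.9 ± 1.23. These levels assume that each gene uses the whole of its annotated exons.

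The rest of the pathway was described by 2 further lists, neither sharing a member with the 51. Of 41 other replication genes tested, which include checkpoint and chromatin genes, 38 were lower and 1 higher at 24 h in shIRE1 clone 1 and 29 and 1 in clone 3, against 16 and 2 in shXBP1 clone 1 and none in clone 18. Of all genes tested, 29%, 23.3% and 12.8% were lower and 32.4%, 22.8% and 13.9% higher in shIRE1 clone 1, shIRE1 clone 3 and shXBP1 clone 1 at this time. The gene that rose in both shIRE1 clones was POLD4, the small accessory subunit of polymerase delta, by 1.12 (standard error 0.20, edgeR adjusted p = 7.26e-05) and 0.73 (standard error 0.22, edgeR adjusted p = 0.0146) (named after its values were seen). Of 24 E2F factors and their regulators, 15 were lower and 4 higher in shIRE1 clone 1 and 14 and 3 in clone 3, against 7 and 3 in shXBP1 clone 1 and none in clone 18, to be read against the same shares of all genes. Those higher in both shIRE1 clones were CDKN1A, a CDK inhibitor, E2F5 and TFDP2, joined by RBL2, a pocket protein that represses E2F targets, in clone 1 (named after their values were seen). Among the genes named by rule, E2F1 changed by -1.47 (standard error 0.064, edgeR adjusted p = 4.53e-13) at 24 h in shIRE1 clone 1 and -1.41 in clone 3, and by -0.35 and -0.15 in shXBP1 clones 1 and 18, the last not called. E2F7, a repressor that E2F itself induces, changed by -2.09 (standard error 0.069, edgeR adjusted p = 7.41e-15) in shIRE1 clone 1 and -1.86 in clone 3, and was called in neither shXBP1 clone. DTL, which targets CDT1 for destruction, changed by -2.34 and -2.01, FBXO5, an inhibitor of the ligase that degrades geminin, by -1.96 and -1.94, and ATAD5, which unloads PCNA, by -1.80 and -1.54 in shIRE1 clones 1 and 3, none of them called with shXBP1 at 24 h. The S phase cyclins CCNE2 and CCNA2 changed by -1.47 and -1.66 in shIRE1 clone 1 and by -1.49 and -1.25 in clone 3, and PKMYT1, a kinase that holds CDK1 inactive, by -1.85 and -1.34. CCNA2 and PKMYT1 in shXBP1 clone 1 fell by 0.49 and 1.23 on the log2 scale.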

How the data were processed

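AMO1 cells with shIRE1 (clones 1 and 3) or shXBP1 (clones 1 and 18) were profiled by stranded, poly(A)-selected RNA-seq with 50-base single reads at 0, 24, 48 and 72 h of Dox, in 48 libraries of 16 groups of 3. The authors deposited whole-number read counts per gene (58302 genes) and log2 CPM values with TMM scaling (18401 genes). Per the submitters' processing notes, GSNAP 2013-10-10, R 4.1.3, edgeR 3.32.1, limma 3.46.0 and the build GRCh37 (hg19) were named. Whether strand was used in counting is not given in the sources used here.

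Counts were analysed with edgeR 4.0.16 in R 4.3.3, using TMM factors, filterByExpr (minimum count 10, total 15) and quasi-likelihood tests, within each clone (12 libraries) and over all 48 libraries for comparisons between clones. Benjamini-Hochberg adjusted p under 0.05 over all genes was called. The test gives no standard error. Those printed are the absolute log2 fold change divided by the square root of the F statistic of the test. CPM were computed with TMM-scaled library sizes. limma 3.58.1 on the deposited log2 values and DESeq2 1.42.0 were alternatives, beside other scalings, filters, library subsets, each library left out and, added after seeing the data, GC-profile offsets (a spline with 5 degrees of freedom) and fits without libraries that lay with another clone. The edgeR, DESeq2, limma and GC-offset fits were tested on simulated counts with known changes, for shIRE1 clone 1 at 24 h. The edgeR fit over 48 libraries was tested likewise for shIRE1 against shXBP1 at 24 h. The other alternatives and comparisons were not simulated.

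The members and lists were chosen with earlier results of these data known. All 51 could be named. Values in every library were given for ORC1, CDC6, CDT1, GMNN, MCM2, MCM10, CDC45, GINS2, PCNA, CLSPN and CDC25A and, in each role, for the members with the largest and smallest absolute mean log2 fold change over the shIRE1 clones at 24 h, so these extremes are a description. ORC6 was added after its values were seen. Members called against most others, and DTL, FBXO5, ATAD5, PKMYT1, E2F7, CCNE2, CCNA2 and E2F1 of the other lists, were named too. GC content and exon lengths came from GENCODE transcripts on GRCh38, matched by gene identifier, and no coordinate was converted. One marker gene of the lists is not reported here.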

Additional observations from a re-analysis of the deposited data

Results flagged for a closer look

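The responses of the members differed between groups, by the interaction terms of the fit over 48 libraries (edgeR quasi-likelihood, adjusted p under 0.05). Between shIRE1 and shXBP1 they differed in 46 members at 24 h, 47 at 48 h and 48 at 72 h, all lower with shIRE1, against 19.7%, 28% and 27.4% of all genes. Between the shIRE1 clones they differed in 28, 15 and 15 members at these times, where 28.2%, 30.8% and 27.5% of all genes did, so that the counts at 48 and 72 h lay near the share of all genes. Between the shXBP1 clones they differed in 7, 25 and 35, where 17.1%, 24.1% and 24.6% of all genes did, the first below that share.

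DSCC1 had the largest difference between shIRE1 and shXBP1, with log2 values of -2.39, -2.41 and -2.63 at 24, 48 and 72 h. MCM4 was deeper in shIRE1 clone 1 than in clone 3 at 24 h, by -0.75. ORC6 was deeper in clone 3, by a difference of 1.26 at 48 h and 1.32 at 72 h (clone 1 minus clone 3), times at which the libraries labelled clone 3 at 48 h and clone 1 at 72 h lay with the other clone at 13 genes. CDT1 was deeper in shXBP1 clone 1 than in clone 18, by -1.21 at 24 h and -1.36 at 48 h, and CHTF18 by -1.41 at 72 h. Both are GC-rich, the GC profile of 1 library of shXBP1 clone 1 at 0 h stood apart, and its part in these differences was not tested beyond the GC offsets.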

How the results depend on the processing

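The fall of the members with shIRE1 was called in 45 or more of the 51 in every alternative without a fold limit. With at least 2-fold, the counts were 25 and 25 in shIRE1 clone 1 at 48 and 72 h (15.6% and 14.9% of all genes, in either direction). In clone 3 they were 26, 24 and 25 at 24, 48 and 72 h (7.66%, 19% and 17.7%). They were 1, 2 and 3 in shXBP1 clone 1 and 0, 0 and 0 in clone 18. From 24 to 48 h they were 0 in shIRE1 clones 1 and 3 (2.38% and 5.64%). Few calls in shXBP1 clone 18 held. At 24, 48 and 72 h, all 48 libraries in 1 fit gave 7, 3 and 17 (4.54%, 10.9% and 18.1% of all genes). Only the 6 libraries compared gave 5, 7 and 0, where 5.37% and 18.7% of all genes were called at 24 and 48 h. GC offsets gave 5 and 10 at 48 and 72 h (11.9% and 15.9%). In shXBP1 clone 1 at 24 h the 6 libraries compared gave 14. From 48 to 72 h, GC offsets gave 1 in shIRE1 clone 1 (1.87% of all genes) and 3 in clone 3 (1.64%). DESeq2 gave 3 in clone 3 (1.36%), and no filter gave 5 in clone 3 (2.55%) and 3 in shXBP1 clone 18. The difference between the shIRE1 clones at 72 h was called in 8 without a filter (11.6% of all genes). The difference between the shXBP1 clones at 24 h was called in 13 by DESeq2, 12 by limma, 18 with GC offsets and 14 without the 7 libraries that lay with another clone. Calls over all genes moved with the setting too, from 0.936% to 2.55% without a filter in shIRE1 clone 3 from 48 to 72 h. Counts given here without a share of all genes are therefore not a result about the members. The causes were not tested.

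When each library was left out in turn, calls ranged from 11 to 19 in shIRE1 clone 3 from 24 to 48 h (11 without its 48 h replicate 3), from 1 to 6, 0 to 3 and 0 to 12 in shXBP1 clone 18 at 24, 48 and 72 h (6, 3 and 2 without its 72 h replicate 3, 12 without its 72 h replicate 1, and at 72 h 0 without any of its 0 h replicates), and from 6 to 14 in the difference between the shXBP1 clones at 24 h. The sign of 3 single values turned. With GC offsets the difference of POLD1 between shIRE1 and shXBP1 at 48 h went from 0.01 to -0.64 and POLD2 in shIRE1 clone 3 at 24 h from 0.01 to -0.24, and the difference of RPA2 at 72 h went from -0.24 to 0.051 with the pair of shIRE1 clone 3 and shXBP1 clone 1.

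The expression values did not show that the replicate numbers pair the flasks, and they cannot show how the flasks were handled. Deviations of same-numbered libraries from their group means correlated at medians of 0.00755, -0.0848, -0.0253 and -0.0148 in the 4 clones, and 4, 3, 8 and 6 of 18 pairs exceeded 0.1. With the number as a replicate block, 49, 51 and 51 members were called in shIRE1 clone 1 at 24, 48 and 72 h. Of all genes, 59.9%, 64% and 62.4% were called there, in either direction. Clone 3 had 45, 48 and 50, beside 43.2%, 61% and 58% of all genes. For shXBP1 the block gave 21, 23 and 25 members for clone 1, and 3, 1 and 0 for clone 18. The clone 1 counts are given without a share and are not a result about the members. For clone 18 the shares at 24 and 48 h were 1.3% and 4.38%. The difference between shIRE1 and shXBP1 was called in 46, 47 and 47, and in 38.1%, 56.5% and 54.8% of all genes.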
